A study of Hordeum vulgare with 18 samples.

Results

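Roots of highland barley grown with 100% of their nitrogen from organic fertilizer were compared with roots grown with 40%. The comparison rests on 6 of the 18 RNA-seq libraries of the series, chosen by their labels, 3 for each rate. Highland barley is a hulless barley of high altitudes. The plants grew in pots of 3.5 kg of soil and were sampled at flowering, and the design speaks of the underground part where the titles say root. Without urea, each 100% pot was given organic fertilizer at 2793 mg, superphosphate at 1289 mg and potassium sulfate at 96 mg. Each 40% pot had 1117 mg of organic fertilizer together with urea at 215 mg, superphosphate at 1443 mg and potassium sulfate at 122 mg. Total nitrogen, phosphorus and potassium were meant to be equal in all pots. Roots at 0% organic nitrogen, with urea at 357 mg, superphosphate at 1545 mg, potassium sulfate at 140 mg and no organic fertilizer, gave 3 further libraries. Leaves at 100% and at 40% gave 3 libraries each. The composition of the organic fertilizer, the number of plants per library, the genotype beyond the species and the hour of sampling are not stated in the sources used here. The p-values therefore measure the spread between these samples, which may be partly technical.

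Roots take up most of their nitrogen as nitrate or ammonium. Nitrate enters through carriers of the NRT2 family, which work with the small partner protein NAR2, and through carriers of the NRT1/PTR family (NPF). Inside the cell nitrate reductase makes nitrite, nitrite reductase in the plastid makes ammonium, and glutamine synthetase with glutamate synthase joins the ammonium to carbon skeletons. Many genes of this route are known to respond to nitrate itself, and urea and organic matter feed it largely after microbes or root enzymes have broken them down.

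Total counts were 14.6 to 16.1 M per 100% root library and 13 to 15.3 M per 40% root library, so that 3 counts equalled 0.186 to 0.231 CPM (counts per 1 M counts of the library). All levels are CPM, as the value of each library or as mean ± SD of 3 libraries. They are not corrected for gene length, so they compare groups and not genes. Log2 changes are 100% minus 40% ± SE. Of 68630 loci, 21895 had enough counts to be tested. A gene was called at an adjusted p below 0.05, and 1005 genes (4.59%) were called, 526 of them higher at 100% (2.4% of those tested) and 479 lower (2.19%). An unadjusted p below 0.05 was found in 4865 genes. The calls had a median log2 change of 1.23 among the higher and -1.27 among the lower genes, and the median over all genes tested was -0.02. A log2 change of at least 2 was reached by 119 of the higher and 110 of the lower calls. Libraries of 1 rate correlated at 0.955 to 0.963 among the 100% roots and at 0.941 to 0.956 among the 40% roots, and libraries of different rate at 0.926 to 0.948. The number of calls depended on single libraries. It was 209 without 100% root 3, 310 without 100% root 1, 319 without 40% root 2, 435 without 40% root 1, 759 without 100% root 2 and 872 without 40% root 3. All 1005 called genes kept their sign in these 6 fits, and 164 were called in each of them. The sign was almost fixed in advance, since the groups did not overlap in all 526 higher and in 478 of the lower calls. Such separated groups were found in 5503 of all genes tested (25.1%). In bulk RNA a lower level of a gene can mean fewer cells of a type or less of its RNA per cell, and these cannot be told apart.

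The tissue label was held against markers. Green tissue markers, among them photosystem and light-harvesting genes, summed to 13.4 to 19 CPM in 100% roots and 15.5 to 21.4 CPM in 40% roots, against 97831 to 171746 CPM in the leaf libraries at these rates. Only 9 of their 77 loci were tested in root, and 0 were called by edgeR or by DESeq2, with 1 at an unadjusted p below 0.05. Root markers summed to 4613 to 5702 CPM in 100% roots and 3769.8 to 4534 CPM in 40% roots, against 1991 to 3179.8 CPM in these leaf libraries. Of 44 tested root markers 5 were called (11.4%, against 4.59% of all genes), all of them higher and all of them the nitrate uptake genes described next. The root marker list holds high-affinity nitrate transporters. The list of high-affinity nitrate uptake alone summed to 1003 to 2562 CPM in 100% roots and 678 to 1378 CPM in 40% roots. In these leaf libraries it summed to 35.8 to 124 CPM. The root marker sums are therefore no check apart from those genes, and sums without them were not taken. Flower and pollen markers summed to 1054 to 1216 CPM in 100% roots and 1233 to 1657 CPM in 40% roots, with 0 of 40 called by edgeR, 16 at an unadjusted p below 0.05, and 4 higher and 5 lower by DESeq2. Grain markers summed to 77.5 to 99.3 CPM in 100% roots and 89.0 to 112 CPM in 40% roots, with 0 of 4 called by edgeR or by DESeq2 and 1 at an unadjusted p below 0.05. The part of the other tissues in the results was not tested.

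**Figure D1:**
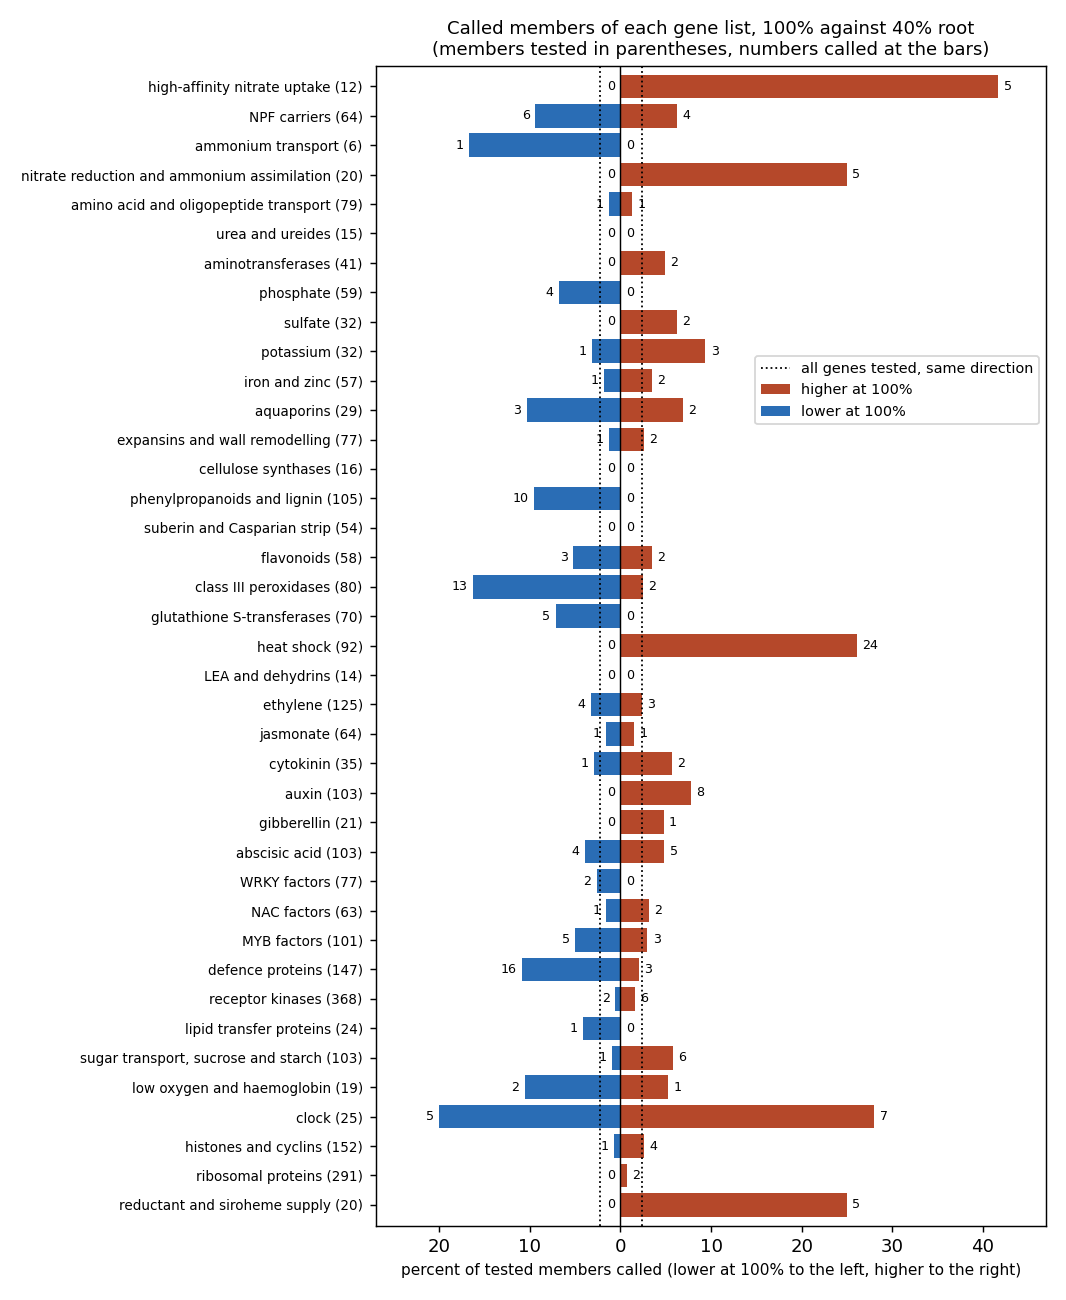
Percent of the tested members of each gene list that were called higher (right of 0) or lower (left of 0) in 100% than in 40% roots, with the number of tested members in parentheses and the numbers called at the bars. Dotted lines mark all genes tested (2.4% higher, 2.19% lower). The lists of heat shock, clock, high-affinity nitrate uptake, nitrate assimilation and reductant supply reach farthest to the right, and the clock, ammonium transport, peroxidase and defence lists farthest to the left.

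Of 12 tested genes of high-affinity nitrate uptake 5 rose and 0 fell in 100% roots (41.7% called, against 4.59% of all genes), 4 had a negative log2 change, and the median log2 change of the list was 0.98. An NRT2.1 locus assembled from the reads (scaffold SDOW01001366.1, 141171 to 143912, minus strand) had 85.1, 25.8 and 35.2 CPM in 100% roots, against 2.16, 2.95 and 2.54 CPM in 40% roots (log2 change 4.24 ± 0.47, adjusted p = 0.0035). Even the lowest 100% library, with 25.8 CPM, lay far above the highest 40% library. The NRT2.4 gene D1007_49225 (scaffold SDOW01000759.1, 1375685 to 1378954, plus strand) had 87.4, 26.9 and 74 CPM in 100% roots, against 5.90, 1.92 and 3.24 CPM in 40% roots (4.07 ± 0.50, adjusted p = 0.0045). Its second 100% library stood well below the other two and still above all 40% libraries. Both loci were low at 0% too, with 5.38 ± 1.41 CPM and 2.27 ± 0.125 CPM. NAR2, the partner without which many NRT2 carriers do not reach the membrane, had the same order of the 3 100% libraries in a pair of loci chosen after their values were seen. NAR2.1 D1007_31256 had 477, 149 and 266 CPM in 100% roots, against 40.9, 63.3 and 60.2 CPM in 40% roots (2.42 ± 0.38, adjusted p = 0.013). The related NAR2 locus D1007_44400 had 432, 143 and 253 CPM in 100% roots, against 50.1, 74.9 and 45.7 CPM in 40% roots (2.26 ± 0.37, adjusted p = 0.015). The member of highest CPM, NAR2.2 D1007_44398, did not pass, with 659.7 ± 232 CPM in 100% roots and 563 ± 236 CPM in 40% roots (0.20 ± 0.33, adjusted p = 0.77), and its log2 change was -0.13 without 100% root 1. The NRT2.1 locus D1007_62268, also chosen after its values were seen, had 244, 56.5 and 81.5 CPM in 100% roots, against 19.3, 36.4 and 12.5 CPM in 40% roots (2.47 ± 0.56, adjusted p = 0.041). A second locus of the same scaffold, D1007_62269, chosen likewise, overlapped between the groups, with 266, 73.6 and 155 CPM in 100% roots, against 35.2, 102 and 41.8 CPM in 40% roots (1.44 ± 0.56, adjusted p = 0.17). NRT2.3 D1007_02430 had 43.4 ± 14.4 CPM in 100% roots and 69.6 ± 31.4 CPM in 40% roots (-0.71 ± 0.39, adjusted p = 0.32) and did not pass. The remaining 4 tested loci, all annotated as NRT2.1, had log2 changes of -1.88 to 0.52 and adjusted p of 0.35 to 0.73. These loci belong to 1 gene family, and how reads that match several members were counted is not stated in the sources used here. The list kept 4 or 5 calls with any 1 library left out. The assembled NRT2.1 locus had a log2 change of 3.51 without 100% root 1. D1007_62268 lost its call without 100% root 1, 100% root 3 or each 40% root library in turn (adjusted p 0.057 to 0.11, 0.00012 to 0.11 over all alternatives), and its log2 change was 1.53 without 100% root 1. D1007_62269 had a log2 change of 2.1 without 40% root 2 and 0.85 without 100% root 1. NAR2.1 kept its call with any 1 library left out and lost it in the fit of the 6 compared libraries alone (adjusted p = 0.0547). D1007_44400 kept its call with any 1 library left out and lost it in the fit of the 6 compared libraries alone (adjusted p = 0.06).

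**Figure D2:**
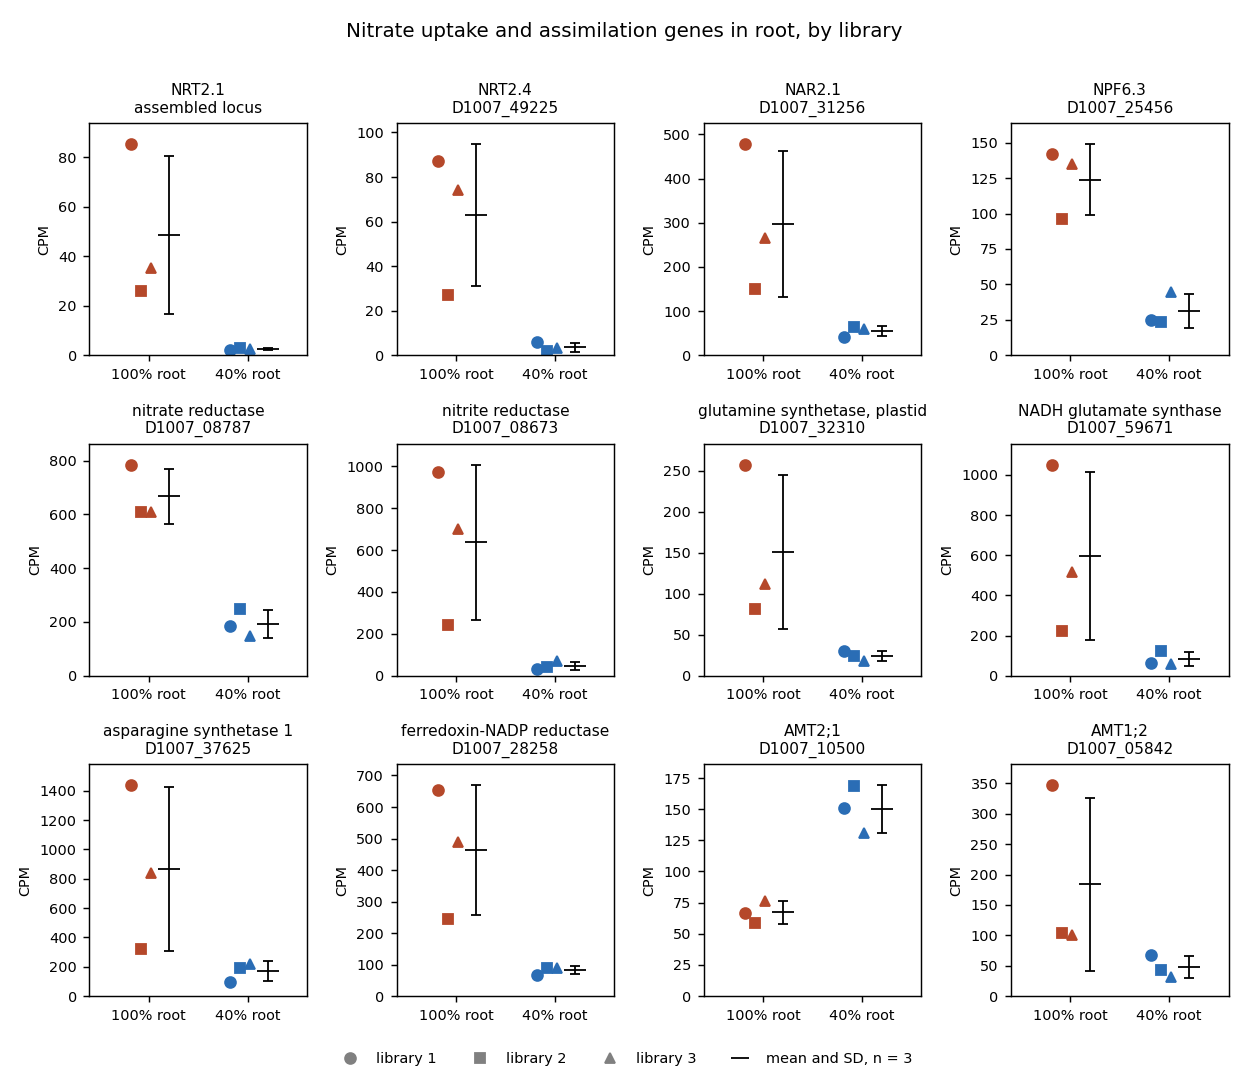
Levels of 12 nitrogen genes in CPM (vertical axes, each from 0) in the 3 libraries of 100% roots (left in each panel) and 40% roots (right), with mean and SD. Library 1 of the 100% roots is highest in most panels, the groups do not overlap in any of them, AMT2;1 is the gene that is lower at 100%, and AMT1;2 did not pass the test. Groups that do not overlap were found in 25.1% of all genes tested.

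The NPF family moved in both directions, with 4 of 64 tested members higher, 6 lower and a median log2 change of -0.17. Of this list 15.6% were called, against 4.59% of all genes. NPF6.3 D1007_25456, annotated with the name of the Arabidopsis nitrate carrier and sensor NRT1.1, had 142, 96 and 135 CPM in 100% roots, against 24.7, 23.5 and 44.9 CPM in 40% roots (1.98 ± 0.26, adjusted p = 0.0057), and the groups stood clearly apart. NPF5.7 D1007_07818 had 274, 144 and 152 CPM in 100% roots, against 32.2, 19.3 and 39.7 CPM in 40% roots (2.64 ± 0.45, adjusted p = 0.017). The other 2 risen members were NPF2.7 D1007_14509 (62.4 CPM at 100% and 30.8 CPM at 40%) and NPF2.3 D1007_14504 (71.9 CPM at 100% and 33.9 CPM at 40%). On the falling side stood 3 loci annotated as NPF8.3, a peptide carrier in Arabidopsis. NPF8.3 D1007_24918 had 14.1, 15.9 and 17.7 CPM in 100% roots, against 34.9, 26.5 and 33.5 CPM in 40% roots (-1.02 ± 0.16, adjusted p = 0.012), an assembled locus (scaffold SDOW01000473.1, 650525 to 652841) had 69.9 CPM at 100% and 168 CPM at 40% and D1007_41278 had 42.1 CPM at 100% and 71.8 CPM at 40%. An assembled NPF5.10 locus (scaffold SDOW01000086.1, 2006615 to 2007695) had 0.211 ± 0.126 CPM in 100% roots and 1.64 ± 0.289 CPM in 40% roots (-2.93 ± 0.57, adjusted p = 0.027), NPF4.6 D1007_16511 had 7.48 CPM at 100% and 22.8 CPM at 40%, and NPF5.6 D1007_33979 had 0.0207 CPM at 100% and 0.591 CPM at 40%. At 100% the mean of NPF5.6 lay below the floor of 3 counts and that of NPF5.10 near it, so the sizes of these falls are not resolved. The member of highest CPM, NPF2.11 at an assembled locus (scaffold SDOW01000018.1, 8101275 to 8105360), had 129, 132 and 171 CPM in 100% roots, against 250.3, 260.4 and 173 CPM in 40% roots (-0.70 ± 0.19, adjusted p = 0.066) and did not pass. With 1 library left out the list had 2 to 4 higher and 1 to 7 lower members, with 1 lower member left without 40% root 2, 100% root 1 or 100% root 3. NPF5.7 lost its call without 40% root 2 (adjusted p = 0.059, 1.1e-07 to 0.11 over all alternatives). NPF5.10 lost its call without each 100% root library in turn, 40% root 1 or 40% root 2 (adjusted p 0.057 to 0.081, 0.00076 to 0.081 over all alternatives). NPF2.11 was called without 40% root 3 (adjusted p = 0.028, 0.012 to 0.35 over all alternatives).

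Among 6 tested ammonium transporters 1 fell and 0 rose (16.7% called, against 4.59% of all genes). The list as a whole did not go down, since 4 of its log2 changes were positive and 2 negative (median 1.07). An unadjusted p below 0.05 was found in 3. AMT2;1 D1007_10500 (scaffold SDOW01000083.1, 6322558 to 6325075, plus strand), of the second family of plant ammonium channels, had 66.7, 58.4 and 76.6 CPM in 100% roots, against 151, 169 and 131 CPM in 40% roots (-1.19 ± 0.15, adjusted p = 0.0053). The highest 100% library, with 76.6 CPM, lay below the lowest 40% library, with 131 CPM, so the groups do not overlap. The member of highest CPM, AMT1;2 D1007_05842, had 347, 104 and 100 CPM in 100% roots, against 68, 43.2 and 32.2 CPM in 40% roots (1.94 ± 0.55, adjusted p = 0.076). It was higher in every 100% library but did not pass, and without 100% root 1, which held 347 CPM, its log2 change was 1.04. Its adjusted p was 0.022 with the replicate block and 0.0033 to 0.25 over all alternatives. AMT3;2 D1007_25386 (29.4 CPM at 100% and 38.6 CPM at 40%) and AMT2;3 D1007_57227 (5.76 CPM at 100% and 5.03 CPM at 40%) did not pass either. The largest log2 change of the list, 3.16, was that of AMT3;1 D1007_48840, which did not pass and is given under the other observations. The remaining tested member did not pass and is not given here. AMT2;1 kept its call with any 1 library left out and lost it in the fit of all 18 libraries (adjusted p = 0.28).

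Nitrate reduction and ammonium assimilation had 5 of 20 tested members higher and 0 lower (25% called, against 4.59% of all genes). In this list 19 of the 20 log2 changes were positive (median 0.74). Nitrate reductase D1007_08787 (scaffold SDOW01000066.1, 7720677 to 7724047, plus strand), the first enzyme of the route, had 784, 609 and 609 CPM in 100% roots, against 185, 248 and 147 CPM in 40% roots (1.76 ± 0.24, adjusted p = 0.0075). The second nitrate reductase D1007_31007 had 172 ± 103 CPM in 100% roots and 109 ± 41 CPM in 40% roots (0.63 ± 0.49, adjusted p = 0.5) and did not pass. Nitrite reductase D1007_08673 (scaffold SDOW01000066.1, 3678579 to 3681627, minus strand), which takes its electrons from ferredoxin, had 971, 240 and 699 CPM in 100% roots, against 30.7, 43.7 and 68.1 CPM in 40% roots (3.73 ± 0.55, adjusted p = 0.0091). The roots at 0% had 91.2, 119 and 179 CPM, above all 40% libraries. The next steps rose as well, in 3 genes chosen after their values were seen. Plastid glutamine synthetase D1007_32310, where ammonium is bound to glutamate, had 257, 81.8 and 112 CPM in 100% roots, against 30.3, 24.5 and 18.5 CPM in 40% roots (2.61 ± 0.44, adjusted p = 0.016). NADH-dependent glutamate synthase D1007_59671, which returns the nitrogen of glutamine to glutamate, had 1050.1, 225 and 515 CPM in 100% roots, against 61.9, 121 and 60.7 CPM in 40% roots (2.86 ± 0.59, adjusted p = 0.032). Asparagine synthetase 1 D1007_37625, which makes a main transport form of nitrogen, had 1438, 318 and 838 CPM in 100% roots, against 95.1, 194 and 222 CPM in 40% roots (2.33 ± 0.55, adjusted p = 0.046). In these 3 genes 100% root 1 was highest and 100% root 2 lowest, and the groups did not overlap. The member of highest CPM, the glutamine synthetase D1007_38808, had 2249 ± 366 CPM in 100% roots and 2314 ± 650.1 CPM in 40% roots (-0.08 ± 0.22, adjusted p = 0.88), and its log2 change was 0.20 without 40% root 2 and 0.01 without 100% root 1. Cytosolic glutamine synthetases D1007_33459 (893 CPM at 100% and 546 CPM at 40%, 0.70 ± 0.41, adjusted p = 0.36) and D1007_39205 (146 CPM at 100% and 79.8 CPM at 40%, 0.86 ± 0.22, adjusted p = 0.058) did not pass. Glutamate dehydrogenase 2 D1007_18327 had 110.3 CPM at 100% and 105 CPM at 40% (0.03 ± 0.24, adjusted p = 0.96). With 1 library left out the list had 2 to 5 calls, fewest without 40% root 2. Glutamine synthetase D1007_32310 lost its call without 40% root 2 (adjusted p = 0.056, 6.5e-08 to 0.056 over all alternatives), and its log2 change was 1.92 without 100% root 1. Glutamate synthase lost its call without 100% root 1, 100% root 3 or each 40% root library in turn (adjusted p 0.057 to 0.084, 0.00097 to 0.084 over all alternatives), and its log2 change was 2.11 without 100% root 1. Asparagine synthetase 1 lost its call without 100% root 1, 100% root 3 or each 40% root library in turn (adjusted p 0.073 to 0.13, 0.00019 to 0.25 over all alternatives), and its log2 change was 1.69 without 100% root 1. Nitrate reductase D1007_08787 kept its call with any 1 library left out and lost it in the fit of all 18 libraries (adjusted p = 0.16).

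Nitrite reductase needs reduced ferredoxin and the haem-like cofactor siroheme, which in root plastids are supplied by the pentose phosphate pathway, ferredoxin-NADP reductase and a branch of tetrapyrrole synthesis. A list of these genes was added after their values were seen, so its 5 higher of 20 tested members (25% called, against 4.59% of all genes) are a description. The root isozyme of ferredoxin-NADP reductase D1007_28258 (scaffold SDOW01000302.1, 1489239 to 1492602, plus strand) had 655, 246 and 488 CPM in 100% roots, against 66.7, 89 and 88.2 CPM in 40% roots (2.49 ± 0.34, adjusted p = 0.0075). Plastid glucose-6-phosphate dehydrogenase D1007_17542 had 312, 103 and 196 CPM in 100% roots, against 36.6, 47.6 and 44.6 CPM in 40% roots (2.23 ± 0.38, adjusted p = 0.016). 6-phosphogluconate dehydrogenase D1007_53899, the next enzyme, had 592, 146 and 365 CPM in 100% roots, against 51.7, 63.6 and 50.6 CPM in 40% roots (2.72 ± 0.47, adjusted p = 0.018). Uroporphyrinogen III methyltransferase D1007_31196, the first enzyme specific to siroheme, had 182, 61.8 and 138 CPM in 100% roots, against 30.5, 25.8 and 34.1 CPM in 40% roots (2.06 ± 0.37, adjusted p = 0.021). Ferredoxin-6 D1007_09374 had 429 CPM at 100% and 169 CPM at 40% (1.32 ± 0.30, adjusted p = 0.039). Close relatives did not pass, such as the cytoplasmic glucose-6-phosphate dehydrogenase D1007_28673 with 272 CPM at 100% and 268 CPM at 40% and 6-phosphogluconate dehydrogenase D1007_21843 with 621 CPM at 100% and 615 CPM at 40%. Over the 15 called genes of nitrate uptake, assimilation and reductant supply, 100% root 1 was the highest of its group in 15 and 100% root 2 the lowest in 14. Among all 526 risen genes, which hold these 15, 100% root 1 was highest in 247 and 100% root 2 lowest in 335, and whether the shares differ was not tested. D1007_53899 lost its call without 100% root 3, 40% root 1 or 40% root 2 (adjusted p 0.0506 to 0.0537, 8.3e-08 to 0.0537 over all alternatives), and its log2 change was 2.13 without 100% root 1. The methyltransferase lost its call without 100% root 1, 100% root 3, 40% root 1 or 40% root 2 (adjusted p 0.0541 to 0.074, 3.7e-06 to 0.1 over all alternatives). Glucose-6-phosphate dehydrogenase kept its call with any 1 library left out and lost it in the fit of the 6 compared libraries alone (adjusted p = 0.0525).

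Among called genes with an annotated function the largest fitted rise was that of a non-symbiotic hemoglobin, D1007_04718 (scaffold SDOW01000036.1, 3536584 to 3537146, minus strand), a protein that turns nitric oxide into nitrate. It had 130.4, 32.6 and 107 CPM in 100% roots, against 0.0655, 1.03 and 2.39 CPM in 40% roots (log2 change 6.29 ± 0.92, adjusted p = 0.009), and only 47 counts in all 3 libraries at 40%. The 0% roots had 2.52, 4.21 and 10.1 CPM. Anion channels chosen after their values were seen also differed. CLC-b D1007_45850, related to an Arabidopsis nitrate exchanger of the vacuole, had 38.5, 8.70 and 16.8 CPM in 100% roots, against 2.1, 1.1 and 1.85 CPM in 40% roots (3.65 ± 0.54, adjusted p = 0.0093). SLAH1 D1007_02256, a homologue of guard cell anion channels, had 10.4, 11.9 and 8.0 CPM in 100% roots, against 1.97, 0.343 and 2.39 CPM in 40% roots (2.68 ± 0.58, adjusted p = 0.036). The hemoglobin had a log2 change of 5.70 without 40% root 1 and 7.33 without 40% root 3. CLC-b had a log2 change of 2.85 without 100% root 1. SLAH1 lost its call without each 100% root library in turn, 40% root 1 or 40% root 2 (adjusted p 0.055 to 0.092, 0.00013 to 0.16 over all alternatives). CLC-b kept its call with any 1 library left out and lost it in the fit of all 18 libraries (adjusted p = 0.13).

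Among the 79 tested transporters of amino acids and oligopeptides 1 rose and 1 fell (2.53% called, against 4.59% of all genes tested). AVT6A D1007_36158, a vacuolar amino acid carrier in Arabidopsis, had 99.1, 49.7 and 88.7 CPM in 100% roots, against 42.5, 33.9 and 23.4 CPM in 40% roots (1.22 ± 0.28, adjusted p = 0.039). ANT1 D1007_14646 had 72.2, 86.8 and 86.9 CPM in 100% roots, against 136, 154 and 123 CPM in 40% roots (-0.78 ± 0.17, adjusted p = 0.035). The member of highest CPM, the vacuolar cationic amino acid transporter D1007_39707, had 296 ± 113 CPM in 100% roots and 398 ± 102 CPM in 40% roots (-0.46 ± 0.27, adjusted p = 0.36). Of 15 urea and ureide genes 0 were called by edgeR, with 5 at an unadjusted p below 0.05 and 1 higher and 1 lower by DESeq2. Their member of highest CPM, allantoate deiminase D1007_57662, had 472, 762 and 602 CPM in 100% roots, against 316, 231 and 374 CPM in 40% roots (0.97 ± 0.26, adjusted p = 0.062). Of 41 aminotransferases 2 rose and 0 fell (4.88% called, against 4.59% of all genes). This became 0 to 2 higher and 0 to 2 lower with 1 library left out. Alanine aminotransferase 2 D1007_56625 had 36.7 ± 5.18 CPM in 100% roots and 16.1 ± 5.53 CPM in 40% roots (1.17 ± 0.23, adjusted p = 0.029). The tryptophan aminotransferase-related D1007_24372 had 42.3 ± 5.69 CPM in 100% roots and 25.1 ± 3.48 CPM in 40% roots (0.73 ± 0.17, adjusted p = 0.042). AVT6A lost its call without 100% root 1, 100% root 3 or each 40% root library in turn (adjusted p 0.0511 to 0.12, 0.0014 to 0.3 over all alternatives). ANT1 lost its call without each 100% root library in turn, 40% root 1 or 40% root 2 (adjusted p 0.058 to 0.11, 0.00086 to 0.48 over all alternatives). Alanine aminotransferase 2 lost its call without each 100% root library in turn or 40% root 1 (adjusted p 0.056 to 0.078, 0.00022 to 0.16 over all alternatives). D1007_24372 lost its call without each of the 6 libraries in turn (adjusted p 0.0525 to 0.12, 0.0036 to 0.57 over all alternatives).

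Of 59 tested phosphate genes 4 fell and 0 rose (6.78% called, against 4.59% of all genes), with a median log2 change of -0.30. The phosphate transporter PT1-2 D1007_30153 (scaffold SDOW01000330.1, 2724693 to 2726270, plus strand), a root carrier of inorganic phosphate, had 46.2, 57.5 and 29 CPM in 100% roots, against 349, 456 and 153 CPM in 40% roots (-2.88 ± 0.40, adjusted p = 0.0075). The 0% roots had 143, 138 and 114 CPM, between the other groups. Further PT1-2 loci, D1007_45148, with 3.99, 2.06 and 1.8 CPM in 100% roots, against 20.4, 27.9 and 5.17 CPM in 40% roots (-2.79 ± 0.59, adjusted p = 0.034), and D1007_45149, with 4.22 CPM at 100% and 16.5 CPM at 40%, fell as well. Purple acid phosphatase 22 D1007_29205, of a family that frees phosphate from organic compounds, had 3.24 CPM at 100% and 10.4 CPM at 40% (-1.70 ± 0.40, adjusted p = 0.045). Leaving out 1 library gave the list 1 to 6 lower members, 1 in all fits but that without 40% root 3, and 0 to 2 higher members. D1007_45148 lost its call without each 100% root library in turn, 40% root 1 or 40% root 2 (adjusted p 0.056 to 0.11, 6.7e-05 to 0.11 over all alternatives).

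Of 32 tested sulfate genes 2 rose and 0 fell (6.25% called, against 4.59% of all genes). Leave-one-out fits gave 1 to 3 higher and 0 to 1 lower. Sulfate transporter SULTR3;5 D1007_31369 (scaffold SDOW01000346.1, 1834755 to 1839607, plus strand), of a group that in Arabidopsis loads sulfate toward the shoot, had 370, 218 and 312 CPM in 100% roots, against 32.4, 25.5 and 24.9 CPM in 40% roots (3.42 ± 0.33, adjusted p = 0.0023), and its lowest 100% library stood far above all 40% libraries. Cysteine synthase at an assembled locus (scaffold SDOW01001355.1, 438468 to 441569), which fixes sulfide into cysteine and overlaps another locus of the table, had 43.7, 12.7 and 39.5 CPM in 100% roots, against 2.29, 6.31 and 8.79 CPM in 40% roots (2.45 ± 0.53, adjusted p = 0.035). Of 32 potassium genes 3 rose and 1 fell (12.5% called, against 4.59% of all genes). The higher members were 1 to 3 and the lower 0 to 1 with 1 library left out. Potassium transporter 23 D1007_20304 had 159, 102 and 126 CPM in 100% roots, against 55.8, 62.4 and 58.7 CPM in 40% roots (1.11 ± 0.17, adjusted p = 0.012). The outward channel KOR1 D1007_09757, of the type that releases potassium into the xylem, had 80.4 ± 18.5 CPM in 100% roots and 40.4 ± 5.22 CPM in 40% roots (0.97 ± 0.21, adjusted p = 0.035). Potassium transporter 1 D1007_52618 fell, with 23.2, 19.5 and 19.3 CPM in 100% roots, against 77.7, 87.2 and 30.7 CPM in 40% roots (-1.69 ± 0.34, adjusted p = 0.03). The cation/proton antiporter CHX20 D1007_11312 was among the largest rises, with 65.8, 163 and 25.8 CPM in 100% roots, against 4.59, 0.892 and 2.54 CPM in 40% roots (4.97 ± 0.73, adjusted p = 0.0094). Its 100% libraries differed widely among themselves, yet the lowest lay above all 40% libraries, and the 0% roots had 0.44, 0.297 and 0.121 CPM. Cysteine synthase lost its call without 100% root 1, 100% root 3, 40% root 1 or 40% root 2 (adjusted p 0.067 to 0.1, 9.8e-05 to 0.1 over all alternatives). KOR1 lost its call without 100% root 1, 100% root 3, 40% root 1 or 40% root 2 (adjusted p 0.088 to 0.1, 0.0011 to 0.26 over all alternatives). Potassium transporter 1 lost its call without each 100% root library in turn, 40% root 1 or 40% root 2 (adjusted p 0.067 to 0.1, 9.8e-05 to 0.1 over all alternatives). CHX20 had a log2 change of 5.62 without 40% root 1 and 4.11 without 100% root 2. Potassium transporter 23 kept its call with any 1 library left out and lost it in the fit of the 6 compared libraries alone (adjusted p = 0.0547) and in the fit of all 18 libraries (adjusted p = 0.17).

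Of 57 tested iron and zinc genes 2 rose and 1 fell (5.26% called, against 4.59% of all genes). This became 0 to 3 higher and 0 to 4 lower with 1 library left out. Both risen genes are annotated as YSL6, a carrier of metal-nicotianamine complexes. YSL6 D1007_42769 had 7.09 ± 3.15 CPM in 100% roots and 1.16 ± 0.226 CPM in 40% roots (2.59 ± 0.48, adjusted p = 0.022), and D1007_15838 had 132 counts in 100% roots and 2 in 40% roots, a CPM ratio of 60.8 with a 95% exact counting interval of 16.5 to 507 (5.69 ± 0.99, adjusted p = 0.027). That counting interval pools the counts of each group and leaves out the spread between libraries. Zinc transporter 3 D1007_02443 had 4.42 ± 0.354 CPM in 100% roots and 11.2 ± 4.40 CPM in 40% roots (-1.37 ± 0.27, adjusted p = 0.028). Aquaporins, the water channels, went both ways, with 2 of 29 higher and 3 lower (17.2% called, against 4.59% of all genes). Leave-one-out fits gave 0 to 2 higher and 1 to 2 lower. The tonoplast aquaporin TIP4-2 D1007_44128 had 47.9, 48.4 and 51.9 CPM in 100% roots, against 175, 338 and 467 CPM in 40% roots (-2.76 ± 0.34, adjusted p = 0.0048), with the 100% libraries close to each other and the 40% libraries spread. The plasma membrane aquaporin PIP1-5, an assembled locus (scaffold SDOW01000695.1, 516869 to 518369), had 796, 949 and 927 CPM in 100% roots, against 571, 367 and 399 CPM in 40% roots (0.97 ± 0.19, adjusted p = 0.025), while PIP1-1 D1007_37893 had 59.1, 98.3 and 60.3 CPM in 100% roots, against 139.6, 125 and 189 CPM in 40% roots (-1.09 ± 0.22, adjusted p = 0.032). NIP2-2 D1007_25689 had 5.28 ± 1.34 CPM in 100% roots and 2.36 ± 0.341 CPM in 40% roots (1.12 ± 0.27, adjusted p = 0.0486), and NIP3-3 D1007_38466 had 0.56 CPM at 100% and 4.17 CPM at 40% (-2.92 ± 0.62, adjusted p = 0.035). D1007_42769 lost its call without 100% root 1, 100% root 3 or 40% root 2 (adjusted p 0.0539 to 0.074, 2.5e-05 to 0.39 over all alternatives). D1007_15838 lost its call without 100% root 1, 100% root 3, 40% root 2 or 40% root 3 (adjusted p 0.056 to 0.082, 0.00024 to 0.11 over all alternatives), and its log2 change was 8.44 without 40% root 1 and 5.04 without 100% root 1. Zinc transporter 3 lost its call without each 100% root library in turn or 40% root 2 (adjusted p 0.0523 to 0.1, 0.00035 to 0.16 over all alternatives). PIP1-5 lost its call without 100% root 1, 100% root 3, 40% root 2 or 40% root 3 (adjusted p 0.055 to 0.079, 1.9e-05 to 0.15 over all alternatives). PIP1-1 lost its call without 100% root 1, 100% root 3 or each 40% root library in turn (adjusted p 0.0541 to 0.11, 0.00033 to 0.13 over all alternatives). NIP2-2 lost its call without each of the 6 libraries in turn (adjusted p 0.064 to 0.15, 0.0072 to 0.28 over all alternatives).

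Heat shock genes, which encode chaperones that keep proteins folded and the factors that switch them on, were higher where they passed. Of 92 tested members 24 rose and 0 fell (26.1%, against 4.59% of all genes), 74 had a positive log2 change, and the list's median was 0.57. The gene with the smallest p of the whole comparison was the HSP70 gene D1007_49259 (scaffold SDOW01000762.1, 56433 to 59569, plus strand), with 1435, 1312 and 1325 CPM in 100% roots, against 138, 179 and 216 CPM in 40% roots (2.91 ± 0.19, adjusted p = 0.00068). The HSC70 gene D1007_59521 had 165, 114 and 123 CPM in 100% roots, against 14.9, 18 and 29.3 CPM in 40% roots (2.68 ± 0.27, adjusted p = 0.0023). Each of 3 genes chosen after their values were seen was higher in every 100% library as well. The cochaperone BAG6, an assembled locus (scaffold SDOW01000027.1, 2187508 to 2193439), had 156, 143 and 141 CPM in 100% roots, against 27.8, 37.2 and 30.5 CPM in 40% roots (2.17 ± 0.15, adjusted p = 0.00068). The class I small heat shock protein D1007_45625 had 91.5, 89.1 and 66.3 CPM in 100% roots, against 13.4, 11.6 and 23.4 CPM in 40% roots (2.34 ± 0.26, adjusted p = 0.0035). The disaggregase ClpB1 D1007_04738, known as HSP101, had 101, 71.1 and 82.9 CPM in 100% roots, against 10.2, 9.67 and 20.9 CPM in 40% roots (2.63 ± 0.30, adjusted p = 0.0038). The 0% roots were lower still in each of these 5, at 85.4 ± 5.96 CPM for HSP70, 9.43 ± 0.821 CPM for HSC70, 15.9 ± 1.08 CPM for BAG6, 8.34 ± 1.11 CPM for the small heat shock protein and 3.20 ± 0.721 CPM for ClpB1. Heat stress factors were among the calls, HSFB2b D1007_40332 with 38.9 CPM at 100% and 13.4 CPM at 40% (1.52 ± 0.15, adjusted p = 0.0023), HSFB2a D1007_41024 with 15 CPM at 100% and 2.97 CPM at 40% (2.32 ± 0.29, adjusted p = 0.0048), HSFA2c D1007_30082 with 69.7 CPM at 100% and 35.5 CPM at 40% (0.95 ± 0.14, adjusted p = 0.01) and HSFC2a D1007_03701 with 5.98 CPM at 100% and 1.77 CPM at 40% (1.74 ± 0.36, adjusted p = 0.033). The plastid and mitochondrial disaggregases ClpB2 D1007_03645 (78.5 CPM at 100% and 33.4 CPM at 40%, 1.21 ± 0.17, adjusted p = 0.0082) and ClpB3 D1007_61782 (38.8 CPM at 100% and 12.8 CPM at 40%, 1.58 ± 0.19, adjusted p = 0.0044) rose too. The HSC70 gene D1007_28751 rose by less, with 2449 CPM at 100% and 1449 CPM at 40% (0.73 ± 0.17, adjusted p = 0.042). When any 1 library was left out the list had 12 to 20 higher and 0 lower members, fewest without 40% root 1 or 100% root 1. The list of genes described as dehydrins or late embryogenesis proteins, which does not hold the HVA1 locus given with the abscisic acid genes, had 0 of 14 called by edgeR, 4 at an unadjusted p below 0.05, and 1 higher and 1 lower by DESeq2. HSC70 D1007_59521 kept its call with any 1 library left out and lost it in the fit of all 18 libraries (adjusted p = 0.11). BAG6 kept its call with any 1 library left out and lost it in the fit of all 18 libraries (adjusted p = 0.068).

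**Figure D3:**
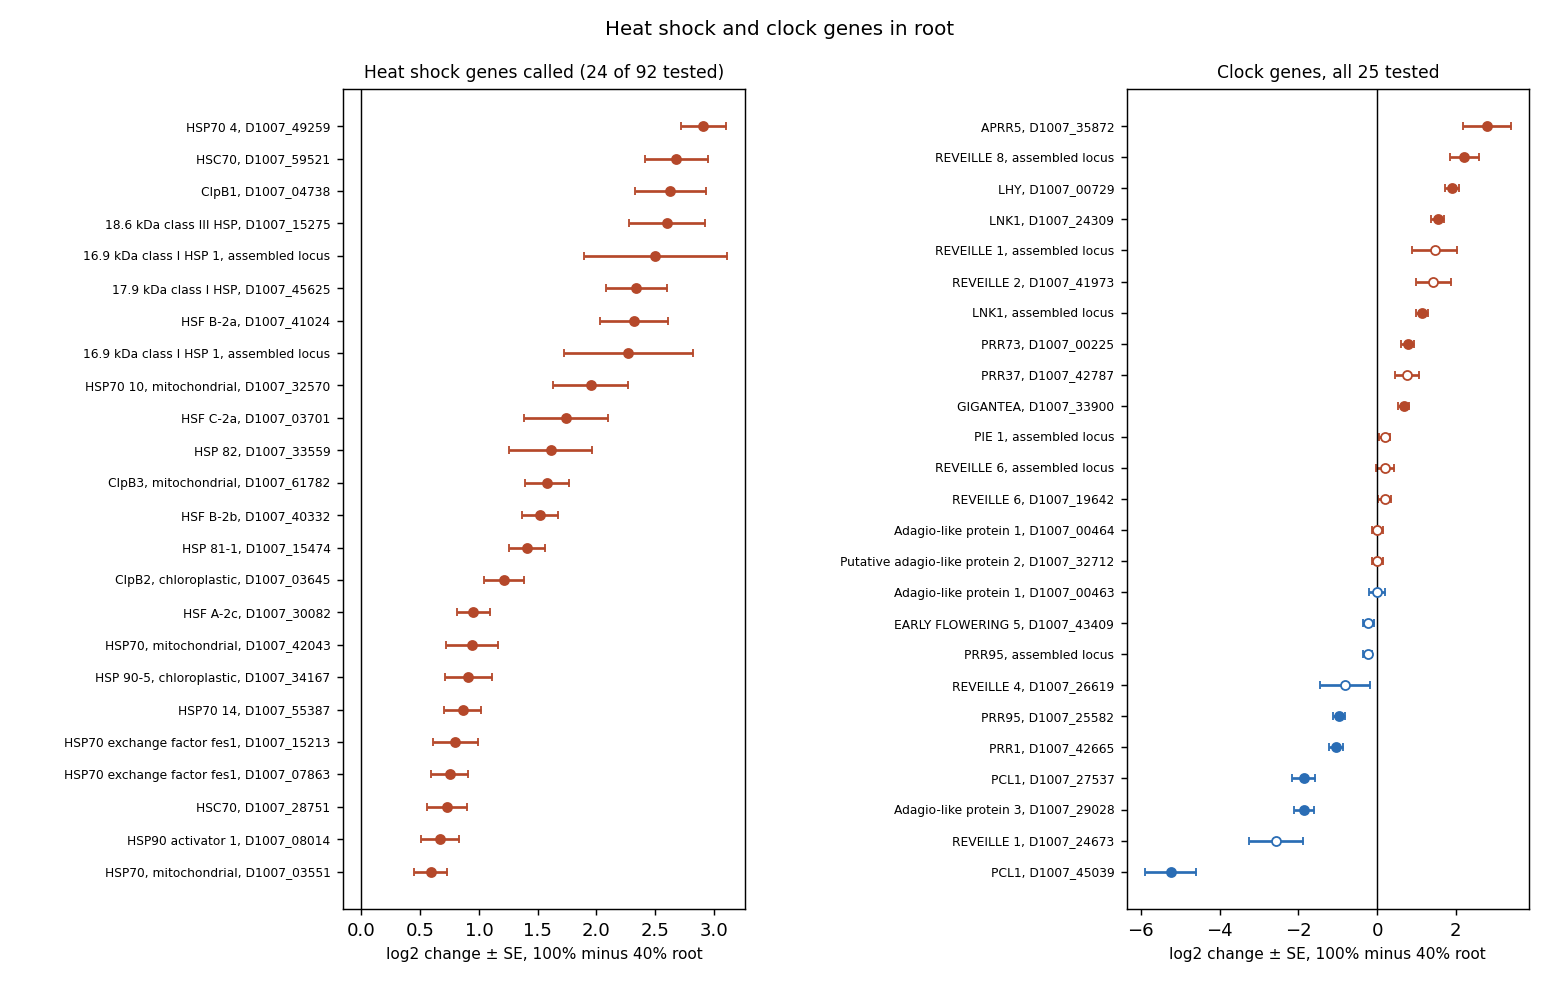
Log2 change ± SE between 100% and 40% roots (horizontal axes) of the 24 called heat shock genes (left) and of all 25 tested clock genes (right), where filled points are called genes and open points are not. The called heat shock genes lie between 0.59 and 2.91, and the clock genes run from PCL1 at -5.24 to PRR5 at 2.79.

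The clock list had the largest share of calls of any list, 12 of 25 tested (48%, against 4.59% of all genes), 7 higher and 5 lower. The clock is a loop of factors that peak at different hours of the day. The morning gene LHY D1007_00729 (scaffold SDOW01000006.1, 33255 to 48058, plus strand) had 454, 609.6 and 536 CPM in 100% roots, against 160.2, 103 and 157 CPM in 40% roots (1.90 ± 0.18, adjusted p = 0.0023). LNK1, a partner of the morning factors, rose in 2 loci, D1007_24309 with 172, 241 and 218 CPM in 100% roots, against 81.3, 61.3 and 70.7 CPM in 40% roots (1.54 ± 0.17, adjusted p = 0.0031) and an assembled locus (scaffold SDOW01000324.1, 2418695 to 2456612) with 43.1 CPM at 100% and 19.2 CPM at 40% (1.14 ± 0.16, adjusted p = 0.0078). An assembled REVEILLE 8 locus (scaffold SDOW01000566.1, 4416460 to 4420209) had 25.9 CPM at 100% and 5.44 CPM at 40% (2.22 ± 0.36, adjusted p = 0.014), PRR5 D1007_35872 had 4.04 CPM at 100% and 0.56 CPM at 40% (2.79 ± 0.60, adjusted p = 0.035), PRR73 D1007_00225 had 86.6 CPM at 100% and 49.4 CPM at 40% (0.78 ± 0.17, adjusted p = 0.038) and GIGANTEA D1007_33900 had 761 CPM at 100% and 465 CPM at 40% (0.68 ± 0.14, adjusted p = 0.032). The lower members followed. PCL1 D1007_45039, the grass homologue of LUX ARRHYTHMO, had 0.317, 0.137 and 1.12 CPM in 100% roots, against 9.96, 16.3 and 33.8 CPM in 40% roots (-5.24 ± 0.65, adjusted p = 0.0048), and the second PCL1 locus D1007_27537 had 1.49 CPM at 100% and 5.29 CPM at 40% (-1.86 ± 0.29, adjusted p = 0.011). The light sensor gene annotated as adagio-like 3 (FKF1) D1007_29028 had 9.56, 8.77 and 15.2 CPM in 100% roots, against 28.3, 42.1 and 48.4 CPM in 40% roots (-1.86 ± 0.26, adjusted p = 0.0078). PRR1, the homologue of TOC1, D1007_42665 had 53.3 CPM at 100% and 107 CPM at 40% (-1.04 ± 0.17, adjusted p = 0.015), and PRR95 D1007_25582 had 54 CPM at 100% and 103 CPM at 40% (-0.97 ± 0.16, adjusted p = 0.016). The demethylase JMJ30 D1007_26028, whose Arabidopsis homologue is tied to the clock, fell to near 0, with 0.0633, 0.137 and 0.186 CPM in 100% roots, against 3.54, 6.93 and 8.40 CPM in 40% roots (-5.55 ± 0.48, adjusted p = 0.0015) and 6 counts in all 100% libraries, each at or below the floor of 3 counts. At 0%, PCL1 had 22.6 ± 5.43 CPM, JMJ30 5.08 ± 0.552 CPM, LHY 85.2 ± 6.48 CPM and LNK1 D1007_24309 42.7 ± 8.11 CPM. The list had, with 1 library left out, 4 to 6 higher and 3 to 6 lower members, and the calls of LHY, LNK1 D1007_24309, PCL1 D1007_45039, adagio-like 3 and JMJ30 were kept in each of these fits. The hour of sampling of the groups is not stated in the sources used here, and its part in these values was not tested. PCL1 D1007_45039 had a log2 change of -6.38 without 100% root 3.

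Of 147 tested defence proteins 16 fell and 3 rose (12.9% called, against 4.59% of all genes), and the median log2 change was -0.61. The pathogenesis-related PRB1-2 D1007_09777 (scaffold SDOW01000077.1, 2360760 to 2361236, minus strand) had 96.2, 108 and 136 CPM in 100% roots, against 804, 427 and 306 CPM in 40% roots (-2.21 ± 0.32, adjusted p = 0.0089). Pathogenesis-related protein 1 D1007_01076 had 2.34, 1.78 and 0.993 CPM in 100% roots, against 31.9, 13.3 and 17.5 CPM in 40% roots (-3.62 ± 0.42, adjusted p = 0.0042). The 0% roots had 3.88 ± 0.929 CPM of this gene, between the other groups, and 320.5 ± 69.6 CPM of PRB1-2. Pathogenesis-related protein 10 D1007_04022 had 52.8 CPM at 100% and 196 CPM at 40% (-1.94 ± 0.37, adjusted p = 0.025), the Bowman-Birk trypsin inhibitor D1007_59738 had 11.3 CPM at 100% and 81.1 CPM at 40% (-2.87 ± 0.63, adjusted p = 0.037), and chitinase CLP D1007_34981 had 7.41 CPM at 100% and 62.7 CPM at 40% (-3.12 ± 0.64, adjusted p = 0.031). Thaumatin-like protein D1007_19504 had 2.75 CPM at 100% and 17.3 CPM at 40% (-2.64 ± 0.58, adjusted p = 0.037), and the assembled beta-glucanase GV locus (scaffold SDOW01000095.1, 2538296 to 2543981) had 51.1 CPM at 100% and 149 CPM at 40% (-1.58 ± 0.35, adjusted p = 0.039). Chitinase 10 D1007_14184 rose, with 67.6, 114 and 126 CPM in 100% roots, against 36.4, 12.4 and 35.9 CPM in 40% roots (1.83 ± 0.38, adjusted p = 0.033). The acidic endochitinase D1007_06646 had 24 counts in 100% roots and 0 in 40% roots, at least 2.45-fold higher when 3 counts per library are taken as the floor (5.97 ± 1.28, adjusted p = 0.043). Its level of 1.28 ± 0.136 CPM at 0% was higher than at either other rate. Leaving out 1 library gave the list 3 to 15 lower members, fewest without 100% root 3, and 0 to 2 higher members. Chitinase 10 lost its call without 100% root 2, 100% root 3 or 40% root 1 (adjusted p 0.0506 to 0.1, 0.0001 to 0.3 over all alternatives). The endochitinase lost its call without 100% root 2, 100% root 3 or each 40% root library in turn (adjusted p 0.072 to 0.12, 0.0043 to 0.13 over all alternatives).

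**Figure D4:**
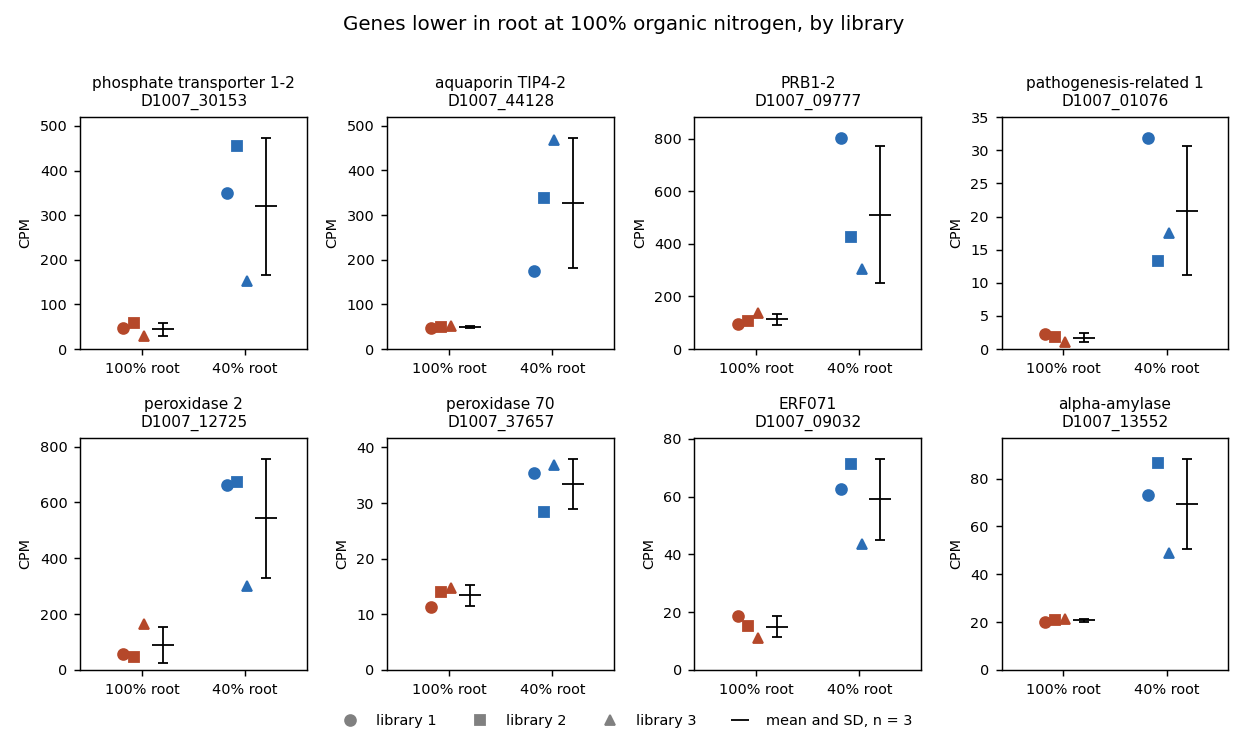
Levels of 8 genes that fell, in CPM (vertical axes, each from 0), in the 3 libraries of 100% roots (left in each panel) and of 40% roots (right), with mean and SD. The lowest 40% library lies above the highest 100% library in every panel, so the groups do not overlap. This was so in 478 of all 479 lower calls.

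Class III peroxidases, secreted enzymes that use hydrogen peroxide to cross-link walls or make radicals, had 13 of 80 tested members lower and 2 higher (median log2 change -0.76). Of this list 18.8% were called, against 4.59% of all genes. The sum over all loci of the list overlapped between the groups, with 4728, 4641 and 5522 CPM in 100% roots, against 6035, 4498 and 3998 CPM in 40% roots. Peroxidase 70 D1007_37657 had 11.3, 14 and 14.8 CPM in 100% roots, against 35.4, 28.4 and 36.8 CPM in 40% roots (-1.36 ± 0.16, adjusted p = 0.0044). Peroxidase 5 D1007_56451 had 16.7, 14.1 and 11.9 CPM in 100% roots, against 35.4, 48.2 and 25.6 CPM in 40% roots (-1.38 ± 0.25, adjusted p = 0.02). Of the fallen members, peroxidase 2 D1007_12725, chosen after its values were seen, had 56.7, 46.7 and 164 CPM in 100% roots, against 663, 672 and 299 CPM in 40% roots (-2.67 ± 0.49, adjusted p = 0.021). The 2 risen members were peroxidase N D1007_42212 with 464, 485 and 563 CPM in 100% roots, against 247, 119 and 197 CPM in 40% roots (1.40 ± 0.24, adjusted p = 0.017) and peroxidase 47 D1007_04568 with 542, 586 and 754 CPM in 100% roots, against 263, 118 and 210.1 CPM in 40% roots (1.64 ± 0.28, adjusted p = 0.018). When any 1 library was left out the list had 2 to 11 lower members, fewest without 40% root 2 or 100% root 3, and 0 to 3 higher members, fewest without 100% root 3. Peroxidase 5 lost its call without 100% root 3 (adjusted p = 0.077, 3.8e-05 to 0.077 over all alternatives). Peroxidase 2 lost its call without 100% root 1 or 40% root 2 (adjusted p 0.06 to 0.073, 3.6e-07 to 0.087 over all alternatives), and its log2 change was -3.39 without 100% root 3. Peroxidase N lost its call without 100% root 3 (adjusted p = 0.0548, 1.8e-06 to 0.0548 over all alternatives). Peroxidase 47 lost its call without 100% root 3 (adjusted p = 0.056, 1.2e-06 to 0.52 over all alternatives).

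Phenylpropanoid and lignin genes had 10 of 105 tested members lower and 0 higher (9.52% called, against 4.59% of all genes, median -0.33). Putrescine hydroxycinnamoyltransferase 1 D1007_53663, which makes phenolic amides, had 35.1, 31.9 and 33.5 CPM in 100% roots, against 90.8, 79.9 and 68.6 CPM in 40% roots (-1.28 ± 0.18, adjusted p = 0.0082). Phenylalanine ammonia-lyase D1007_11287, the entry enzyme of the pathway, had 14.5, 10.8 and 7.94 CPM in 100% roots, against 26.3, 54.1 and 32 CPM in 40% roots (-1.78 ± 0.31, adjusted p = 0.018). Cinnamoyl-CoA reductase 1, a lignin enzyme, fell in D1007_18543 (6.95 CPM at 100% and 22.9 CPM at 40%, -1.75 ± 0.32, adjusted p = 0.022) and D1007_56767 (33.4 CPM at 100% and 85 CPM at 40%, -1.38 ± 0.29, adjusted p = 0.035). Dirigent proteins, which guide the coupling of phenolic radicals, made up 5 of the 10, among them dirigent protein 19 D1007_05222 (59.5 CPM at 100% and 151 CPM at 40%, -1.38 ± 0.29, adjusted p = 0.032). Glutathione S-transferases, which detoxify reactive compounds, had 5 of 70 lower and 0 higher (7.14% called, against 4.59% of all genes, median -0.40). GSTU6 D1007_53466 had 9.18, 5.76 and 1.86 CPM in 100% roots, against 29.2, 49.8 and 85.2 CPM in 40% roots (-3.29 ± 0.60, adjusted p = 0.021), and glutathione S-transferase 3 D1007_47281 had 14.8, 16.6 and 17.6 CPM in 100% roots, against 27.3, 32 and 29.3 CPM in 40% roots (-0.89 ± 0.15, adjusted p = 0.015). With 1 library left out the phenylpropanoid list had 1 to 13 lower members, fewest without 100% root 3, and 0 or 1 higher, and the transferase list 0 to 6 lower, fewest without 100% root 3. Phenylalanine ammonia-lyase lost its call without 100% root 3 (adjusted p = 0.067, 8.0e-06 to 0.31 over all alternatives). GSTU6 lost its call without 100% root 2 or 100% root 3 (adjusted p 0.0507 to 0.0526, 3.5e-07 to 0.061 over all alternatives), and its log2 change was -3.90 without 100% root 1. Glutathione S-transferase 3 lost its call without 100% root 1 or 100% root 3 (adjusted p 0.0547 to 0.059, 2.6e-05 to 0.64 over all alternatives).

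Flavonoid genes had 2 of 58 tested members higher and 3 lower (8.62% called, against 4.59% of all genes). The higher members were 0 to 2 and the lower 0 to 3 with 1 library left out. A pair of loci annotated as anthocyanidin reductase differed in direction. D1007_13281 had 58.2, 59.4 and 58.1 CPM in 100% roots, against 31.7, 20 and 16 CPM in 40% roots (1.35 ± 0.22, adjusted p = 0.013), and D1007_15860 had 4.81 ± 0.848 CPM in 100% roots and 10.5 ± 2.02 CPM in 40% roots (-1.15 ± 0.24, adjusted p = 0.032). A flavonoid O-methyltransferase, D1007_33980, had 5.51, 5.96 and 4.84 CPM in 100% roots, against 40.7, 21.7 and 11.9 CPM in 40% roots (-2.21 ± 0.46, adjusted p = 0.032). The anthocyanin acyltransferase D1007_11205 had 44 counts in 100% roots and 2 in 40% roots, a CPM ratio of 20.3 with a 95% exact counting interval of 5.28 to 172 (4.09 ± 0.90, adjusted p = 0.038). Here, too, the counting interval pools the counts of each group and leaves out the spread between libraries. Suberin and Casparian strip genes, which seal the endodermis, had 0 of 54 called by edgeR, 9 at an unadjusted p below 0.05, and 3 lower by DESeq2. Cellulose synthases had 0 of 16 called by edgeR, 5 at an unadjusted p below 0.05, and 1 lower by DESeq2. Expansins and wall-remodelling enzymes had 2 of 77 higher and 1 lower (3.9% called, against 4.59% of all genes). This became 0 to 1 higher and 0 to 2 lower with 1 library left out. Expansin-like A1 D1007_15156 had 10.7 ± 0.912 CPM in 100% roots and 5.66 ± 1.36 CPM in 40% roots (0.89 ± 0.19, adjusted p = 0.036). Polygalacturonases, which cut pectin, stood on both sides, D1007_12412 with 32.7 ± 11.6 CPM in 100% roots and 11.6 ± 3.84 CPM in 40% roots (1.45 ± 0.33, adjusted p = 0.041) and D1007_23431 with 6.03 ± 1.61 CPM in 100% roots and 13.4 ± 1.69 CPM in 40% roots (-1.18 ± 0.21, adjusted p = 0.021). D1007_13281 lost its call without 40% root 2 (adjusted p = 0.0501, 2.2e-06 to 0.59 over all alternatives). D1007_15860 lost its call without each of the 6 libraries in turn (adjusted p 0.057 to 0.1, 0.00078 to 0.48 over all alternatives). D1007_33980 lost its call without each 100% root library in turn, 40% root 1 or 40% root 2 (adjusted p 0.066 to 0.11, 5.7e-05 to 0.11 over all alternatives). D1007_11205 lost its call without each of the 6 libraries in turn (adjusted p 0.066 to 0.12, 0.015 to 0.16 over all alternatives). Expansin-like A1 lost its call without each 100% root library in turn, 40% root 1 or 40% root 2 (adjusted p 0.072 to 0.1, 0.0014 to 0.27 over all alternatives). D1007_12412 lost its call without each 100% root library in turn, 40% root 1 or 40% root 3 (adjusted p 0.053 to 0.13, 0.0013 to 0.36 over all alternatives). D1007_23431 lost its call without 100% root 1, 100% root 3 or 40% root 1 (adjusted p 0.0544 to 0.08, 5.8e-05 to 0.21 over all alternatives).

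Auxin genes had 8 of 103 tested members higher and 0 lower (7.77% called, against 4.59% of all genes, median 0.08). The efflux carrier PIN5b D1007_59144 had 25.6, 30.3 and 20.4 CPM in 100% roots, against 7.34, 6.65 and 10.6 CPM in 40% roots (1.62 ± 0.24, adjusted p = 0.01), and its relative PIN5a D1007_24016 had 8.18 CPM at 100% and 0.611 CPM at 40% (3.68 ± 0.76, adjusted p = 0.032). A GH3 enzyme that joins auxin to amino acids, D1007_08103, had 77, 21 and 36.5 CPM in 100% roots, against 8.85, 5.01 and 2.24 CPM in 40% roots (3.04 ± 0.61, adjusted p = 0.029). The influx carrier gene D1007_09414 (163 CPM at 100% and 50.6 CPM at 40%) and auxin response factor 6 D1007_35376 (74.5 CPM at 100% and 26.1 CPM at 40%) rose too. Cytokinin genes had 2 of 35 higher and 1 lower (8.57% called, against 4.59% of all genes). Leave-one-out fits gave 1 to 2 higher and 0 to 1 lower. The phosphoribohydrolase of the LOG family D1007_11906, which releases active cytokinin, had 63.4, 69.6 and 83.1 CPM in 100% roots, against 18, 13 and 32.4 CPM in 40% roots (1.74 ± 0.27, adjusted p = 0.012). The response regulator ORR22 D1007_48687 had 65.8 ± 8.21 CPM in 100% roots and 40.9 ± 2.79 CPM in 40% roots (0.66 ± 0.13, adjusted p = 0.028), and cytokinin hydroxylase D1007_37739, an enzyme of cytokinin synthesis, had 1.14, 1.23 and 1.74 CPM in 100% roots, against 6.42, 3.57 and 9.10 CPM in 40% roots (-2.23 ± 0.39, adjusted p = 0.018). With 1 library left out the auxin list had 1 to 5 higher members, fewest without 40% root 2, 100% root 1 or 100% root 3, and 0 or 1 lower. The GH3 gene lost its call without 100% root 1, 100% root 3, 40% root 2 or 40% root 3 (adjusted p 0.0525 to 0.089, 4.9e-06 to 0.089 over all alternatives), and its log2 change was 2.35 without 100% root 1. ORR22 lost its call without 100% root 1, 100% root 3, 40% root 1 or 40% root 2 (adjusted p 0.067 to 0.094, 0.00028 to 0.23 over all alternatives). Cytokinin hydroxylase lost its call without 100% root 1 or 100% root 3 (adjusted p 0.0548 to 0.062, 1.3e-05 to 0.088 over all alternatives). PIN5b kept its call with any 1 library left out and lost it in the fit of all 18 libraries (adjusted p = 0.47). The LOG gene kept its call with any 1 library left out and lost it in the fit of the 6 compared libraries alone (adjusted p = 0.0518) and in the fit of all 18 libraries (adjusted p = 0.29).

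Ethylene genes had 3 of 125 tested members higher and 4 lower (5.6% called, against 4.59% of all genes). The higher members were 1 to 3 and the lower 1 to 3 with 1 library left out. The synthesis gene ACC oxidase D1007_28056 had 83.2, 98.4 and 139 CPM in 100% roots, against 33, 34.4 and 33.8 CPM in 40% roots (1.63 ± 0.16, adjusted p = 0.0023). The factor ERF118 D1007_53008 had 59.1, 34.2 and 49.3 CPM in 100% roots, against 11.9, 13.7 and 17.4 CPM in 40% roots (1.71 ± 0.30, adjusted p = 0.02). ERF071 D1007_09032, of the group that responds to low oxygen in Arabidopsis, had 18.5, 15.2 and 11.1 CPM in 100% roots, against 62.5, 71.2 and 43.7 CPM in 40% roots (-2.0 ± 0.29, adjusted p = 0.0089), and RAP2-3 D1007_13913, of the same group, had 12.3, 3.36 and 5.96 CPM in 100% roots, against 68.7, 43.3 and 18 CPM in 40% roots (-2.59 ± 0.56, adjusted p = 0.036). Abscisic acid genes had 5 of 103 higher and 4 lower (8.74% called, against 4.59% of all genes). This became 0 to 5 higher and 0 to 4 lower with 1 library left out. Without 100% root 3 the list had 0 calls, and without 100% root 1 it had 1 in each direction. The abscisic acid-inducible late embryogenesis protein HVA1, an assembled locus (scaffold SDOW01000069.1, 2526933 to 2528053), had 50.3, 17 and 82.7 CPM in 100% roots, against 6.55, 1.03 and 2.0 CPM in 40% roots (3.92 ± 0.68, adjusted p = 0.018). Protein phosphatases 2C, negative regulators of the hormone's signal, went both ways, PP2C37 D1007_43963 with 37.6 ± 9.49 CPM in 100% roots and 10.2 ± 5.52 CPM in 40% roots (1.85 ± 0.33, adjusted p = 0.02) and PP2C12, an assembled locus (scaffold SDOW01000035.1, 528241 to 532622), with 37.5 ± 4.37 CPM in 100% roots and 71.8 ± 13.6 CPM in 40% roots (-0.97 ± 0.16, adjusted p = 0.016). The receptor PYL9 D1007_55741 had 1.1 ± 0.155 CPM in 100% roots and 3.41 ± 1.06 CPM in 40% roots (-1.65 ± 0.34, adjusted p = 0.031). ERF118 lost its call without 100% root 1, 100% root 3, 40% root 1 or 40% root 2 (adjusted p 0.056 to 0.064, 9.6e-06 to 0.064 over all alternatives). RAP2-3 lost its call without 100% root 2, 100% root 3, 40% root 1 or 40% root 2 (adjusted p 0.074 to 0.12, 6.4e-05 to 0.12 over all alternatives), and its log2 change was -3.28 without 100% root 1. HVA1 lost its call without 100% root 3 (adjusted p = 0.056, 2.0e-08 to 0.063 over all alternatives), and its log2 change was 5.01 without 40% root 1. PP2C37 lost its call without 100% root 1, 100% root 3, 40% root 1 or 40% root 2 (adjusted p 0.0501 to 0.068, 8.6e-06 to 0.07 over all alternatives). PP2C12 lost its call without 100% root 1 or 100% root 3 (adjusted p 0.058 to 0.06, 1.6e-05 to 0.063 over all alternatives). PYL9 lost its call without each 100% root library in turn, 40% root 1 or 40% root 2 (adjusted p 0.053 to 0.11, 0.0012 to 0.31 over all alternatives). ACC oxidase kept its call with any 1 library left out and lost it in the fit of all 18 libraries (adjusted p = 0.35).

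Jasmonate genes had 1 of 64 tested members higher and 1 lower (3.12% called, against 4.59% of all genes). Leave-one-out fits gave 0 higher and 0 to 2 lower. The 9-lipoxygenase D1007_23297 had 329 ± 54.5 CPM in 100% roots and 195 ± 21.8 CPM in 40% roots (0.73 ± 0.17, adjusted p = 0.0453), and the 12-oxophytodienoate reductase D1007_34787 had 61.2 ± 12.3 CPM in 100% roots and 141 ± 33.8 CPM in 40% roots (-1.24 ± 0.29, adjusted p = 0.0458). Of 21 gibberellin genes 1 rose and 0 fell (4.76% called, against 4.59% of all genes). The risen member was the DELLA repressor SLN1 D1007_46206 with 192 ± 13.5 CPM in 100% roots and 113 ± 11.3 CPM in 40% roots (0.75 ± 0.17, adjusted p = 0.038). Of 77 WRKY factors, many of them linked to defence, 2 fell and 0 rose (2.6% called, against 4.59% of all genes). The higher members were 0 and the lower 0 to 3 with 1 library left out. WRKY19 D1007_25648 had 231 ± 42 CPM in 100% roots and 413 ± 38.1 CPM in 40% roots (-0.86 ± 0.18, adjusted p = 0.035), and WRKY1 D1007_35544 had 3.15 ± 0.807 CPM in 100% roots and 10.4 ± 4.25 CPM in 40% roots (-1.76 ± 0.38, adjusted p = 0.035). The lipoxygenase lost its call without each of the 6 libraries in turn (adjusted p 0.0541 to 0.13, 0.0019 to 0.53 over all alternatives). The reductase lost its call without each of the 6 libraries in turn (adjusted p 0.063 to 0.13, 0.0018 to 0.44 over all alternatives). SLN1 lost its call without each of the 6 libraries in turn (adjusted p 0.0502 to 0.11, 0.0011 to 0.11 over all alternatives). WRKY19 lost its call without 100% root 1, 100% root 3 or each 40% root library in turn (adjusted p 0.056 to 0.09, 0.0005 to 0.8 over all alternatives). WRKY1 lost its call without 100% root 1, 100% root 3, 40% root 1 or 40% root 2 (adjusted p 0.073 to 0.12, 0.00055 to 0.13 over all alternatives).

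NAC factors had 2 of 63 tested members higher and 1 lower (4.76% called, against 4.59% of all genes). This became 0 to 1 higher and 0 to 2 lower with 1 library left out. NAC43 at an assembled locus (scaffold SDOW01000060.1, 238108 to 241241), a secondary wall regulator in Arabidopsis, had 6.35 ± 2.85 CPM in 100% roots and 1.24 ± 0.597 CPM in 40% roots (2.31 ± 0.53, adjusted p = 0.042), NAC78 D1007_16632 had 397, 521 and 768 CPM in 100% roots, against 232, 89.4 and 137 CPM in 40% roots (1.85 ± 0.44, adjusted p = 0.0473), and NAC90 D1007_09369 had 3.17, 3.50 and 3.66 CPM in 100% roots, against 30.3, 20.9 and 6.01 CPM in 40% roots (-2.50 ± 0.48, adjusted p = 0.026). MYB factors had 3 of 101 higher and 5 lower (7.92% called, against 4.59% of all genes). Leave-one-out fits gave 2 to 5 higher and 0 to 4 lower. IPN2 D1007_60082 had 26.3, 24.7 and 26 CPM in 100% roots, against 13.7, 13 and 12.7 CPM in 40% roots (0.94 ± 0.13, adjusted p = 0.0082), with both groups very tight. PHL11 D1007_09086 had 20.5, 10.3 and 19.1 CPM in 100% roots, against 4.52, 5.35 and 5.01 CPM in 40% roots (1.72 ± 0.26, adjusted p = 0.011). The factor Hv33 D1007_29800 had 0.958 ± 0.761 CPM in 100% roots and 4.70 ± 0.923 CPM in 40% roots (-2.29 ± 0.47, adjusted p = 0.032). MYB30, a defence and lipid regulator in Arabidopsis, fell in 3 loci, D1007_28479 with 7.25 ± 1.51 CPM in 100% roots and 15.1 ± 4.26 CPM in 40% roots (-1.08 ± 0.24, adjusted p = 0.036), D1007_28484 with 6.0 CPM at 100% and 12.9 CPM at 40% and D1007_28486 with 64.9 CPM at 100% and 104 CPM at 40%. NAC43 lost its call without each 100% root library in turn, 40% root 1 or 40% root 2 (adjusted p 0.058 to 0.13, 0.0011 to 0.24 over all alternatives). NAC78 lost its call without each 100% root library in turn, 40% root 2 or 40% root 3 (adjusted p 0.075 to 0.13, 0.00056 to 0.21 over all alternatives). NAC90 lost its call without each 100% root library in turn, 40% root 1 or 40% root 2 (adjusted p 0.055 to 0.09, 1.3e-05 to 0.39 over all alternatives). Hv33 lost its call without 100% root 2, 100% root 3 or 40% root 2 (adjusted p 0.064 to 0.1, 8.1e-05 to 0.13 over all alternatives), and its log2 change was -3.22 without 100% root 1. D1007_28479 lost its call without 100% root 1, 100% root 3, 40% root 1 or 40% root 3 (adjusted p 0.065 to 0.11, 0.0014 to 0.29 over all alternatives). IPN2 kept its call with any 1 library left out and lost it in the fit of all 18 libraries (adjusted p = 0.67) and under a minimum log2 change of 1. PHL11 kept its call with any 1 library left out and lost it in the fit of all 18 libraries (adjusted p = 0.078).

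Sugar and starch genes had 6 of 103 tested members higher and 1 lower (6.8% called, against 4.59% of all genes). The higher members were 3 to 5 and the lower 1 to 5 with 1 library left out. A galactinol-sucrose galactosyltransferase D1007_43658, an enzyme of raffinose metabolism, had 354, 242 and 381 CPM in 100% roots, against 76.5, 66.9 and 102 CPM in 40% roots (1.97 ± 0.23, adjusted p = 0.0042). Starch synthase 3a D1007_15989 had 37.5, 34.5 and 37.4 CPM in 100% roots, against 18.4, 15.3 and 17.5 CPM in 40% roots (1.07 ± 0.15, adjusted p = 0.0075), and starch synthase 4 D1007_59651 had 40.5 CPM at 100% and 20.5 CPM at 40% (0.96 ± 0.13, adjusted p = 0.0075). Alpha-amylase D1007_13552, which degrades starch, fell, with 20.1, 20.7 and 21.3 CPM in 100% roots, against 73.1, 86.3 and 49 CPM in 40% roots (-1.78 ± 0.21, adjusted p = 0.0042), and the 0% roots had 33.9 ± 1.90 CPM. Among 19 tested genes of the low oxygen and haemoglobin list 1 rose, the hemoglobin given above, and 2 fell (15.8% called, against 4.59% of all genes). Alcohol dehydrogenase 3, a fermentation enzyme, fell in 2 loci. An assembled locus (scaffold SDOW01000545.1, 1219363 to 1222150), which overlaps another locus of the table, had 35.1, 41.7 and 29.8 CPM in 100% roots, against 70, 71.6 and 79.1 CPM in 40% roots (-1.07 ± 0.17, adjusted p = 0.012). Its homologue D1007_25918 had 2.47, 0.891 and 2.54 CPM in 100% roots, against 42.6, 14.2 and 12.4 CPM in 40% roots (-3.56 ± 0.57, adjusted p = 0.013). Of 24 lipid transfer genes 1 fell and 0 rose (4.17% called, against 4.59% of all genes). The fallen member was the glycolipid transfer protein D1007_07402 with 25.4, 27 and 28.5 CPM in 100% roots, against 62.8, 52.5 and 68 CPM in 40% roots (-1.21 ± 0.13, adjusted p = 0.0031). D1007_25918 lost its call without 100% root 3 (adjusted p = 0.0525, 1.3e-08 to 0.0525 over all alternatives), and its log2 change was -2.78 without 40% root 1. The galactosyltransferase kept its call with any 1 library left out and lost it in the fit of all 18 libraries (adjusted p = 0.0542). Starch synthase 3a kept its call with any 1 library left out and lost it in the fit of all 18 libraries (adjusted p = 0.12). Alpha-amylase kept its call with any 1 library left out and lost it in the fit of all 18 libraries (adjusted p = 0.12). The assembled ADH3 locus kept its call with any 1 library left out and lost it in the fit of all 18 libraries (adjusted p = 0.52).

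Histones and cyclins had 4 of 152 tested members higher and 1 lower (3.29% called, against 4.59% of all genes). This became 0 to 5 higher and 0 to 1 lower with 1 library left out. Linker histone H1 rose at an assembled locus (scaffold SDOW01000860.1, 930840 to 967876), with 223, 261 and 424 CPM in 100% roots, against 156, 118 and 141 CPM in 40% roots (1.09 ± 0.22, adjusted p = 0.03), and in D1007_43242, with 351, 539.6 and 656 CPM in 100% roots, against 189, 281 and 236 CPM in 40% roots (1.09 ± 0.24, adjusted p = 0.039). Histone H2A D1007_27675 was among the largest falls, with 0.696, 0.0685 and 1.24 CPM in 100% roots, against 12.7, 9.26 and 7.63 CPM in 40% roots (-3.88 ± 0.81, adjusted p = 0.033). Ribosomal proteins had 2 of 291 higher and 0 lower (0.687% called, against 4.59% of all genes tested), and 207 of them had a positive log2 change (median 0.18). The called members were L13 D1007_19968, with 14.1 ± 1.06 CPM in 100% roots and 7.51 ± 1.47 CPM in 40% roots (0.89 ± 0.19, adjusted p = 0.034), and the ubiquitin fusion L40 D1007_49908, with 2.89 ± 1.62 CPM in 100% roots and 0.251 ± 0.207 CPM in 40% roots (3.44 ± 0.77, adjusted p = 0.038). Receptor kinases had 6 of 368 higher and 2 lower (2.17% called, against 4.59% of all genes). Leave-one-out fits gave 0 to 5 higher and 0 to 8 lower. The list had 0 higher members without 40% root 1 or 100% root 3, and 8 lower members without 40% root 3. HSL1 D1007_60732 had 7.65 ± 2.08 CPM in 100% roots and 1.53 ± 0.282 CPM in 40% roots (2.29 ± 0.41, adjusted p = 0.02), and the lectin kinase D1007_38347 had 9.77 ± 2.41 CPM in 100% roots and 3.53 ± 0.563 CPM in 40% roots (1.44 ± 0.26, adjusted p = 0.02). The cysteine-rich kinase D1007_31483 had 4.79 ± 1.47 CPM in 100% roots and 12.1 ± 1.8 CPM in 40% roots (-1.36 ± 0.25, adjusted p = 0.023), and the lectin kinase D1007_00490 had 81.6 ± 15.9 CPM in 100% roots and 143 ± 24.7 CPM in 40% roots (-0.84 ± 0.20, adjusted p = 0.044). The assembled histone H1 locus lost its call without 100% root 3 or each 40% root library in turn (adjusted p 0.054 to 0.09, 0.00016 to 0.16 over all alternatives). D1007_43242 lost its call without 100% root 2, 100% root 3 or each 40% root library in turn (adjusted p 0.064 to 0.12, 0.00074 to 0.13 over all alternatives). Histone H2A lost its call without each 100% root library in turn, 40% root 1 or 40% root 2 (adjusted p 0.056 to 0.096, 1.1e-05 to 0.096 over all alternatives), and its log2 change was -4.61 without 100% root 3. L13 lost its call without 100% root 1, 100% root 3, 40% root 1 or 40% root 2 (adjusted p 0.087 to 0.098, 0.0011 to 0.33 over all alternatives). L40 lost its call without 100% root 1, 100% root 3 or each 40% root library in turn (adjusted p 0.064 to 0.11, 0.00094 to 0.16 over all alternatives), and its log2 change was 4.28 without 40% root 2. HSL1 lost its call without 100% root 1, 100% root 3, 40% root 1 or 40% root 2 (adjusted p 0.0549 to 0.065, 1.0e-05 to 0.24 over all alternatives). D1007_38347 lost its call without 100% root 1, 100% root 3, 40% root 1 or 40% root 2 (adjusted p 0.0543 to 0.077, 8.4e-05 to 0.32 over all alternatives). D1007_31483 lost its call without 100% root 1 or 40% root 2 (adjusted p 0.071 to 0.072, 0.00013 to 0.25 over all alternatives). D1007_00490 lost its call without each of the 6 libraries in turn (adjusted p 0.0547 to 0.13, 0.0032 to 0.54 over all alternatives).

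The remaining large rises were in genes of other roles. UGT13248, a glucosyltransferase that in barley inactivates a Fusarium toxin, rose in 2 loci of 1 scaffold, D1007_22249 with 140.2, 39.2 and 96.9 CPM in 100% roots, against 0.786, 1.03 and 10.4 CPM in 40% roots (4.52 ± 0.87, adjusted p = 0.026) and D1007_22241 with 83.2, 23.2 and 73 CPM in 100% roots, against 0.655, 1.37 and 6.01 CPM in 40% roots (4.49 ± 0.74, adjusted p = 0.015). The 40% libraries of these loci differed widely, with 40% root 3 the highest. The N-acetyltransferase HLS1 D1007_59348 had 60.1, 17.3 and 47.5 CPM in 100% roots, against 0.721, 1.92 and 6.48 CPM in 40% roots (3.78 ± 0.69, adjusted p = 0.021). The ubiquitin ligase D1007_17623 had 11.5, 3.70 and 5.77 CPM in 100% roots, against 0.262, 0.755 and 0.54 CPM in 40% roots (3.72 ± 0.62, adjusted p = 0.016). D1007_22249 lost its call without 100% root 1, 100% root 3 or 40% root 2 (adjusted p 0.068 to 0.071, 0.00034 to 0.078 over all alternatives), and its log2 change was 6.63 without 40% root 3. D1007_22241 lost its call without 40% root 2 (adjusted p = 0.0545, 7.1e-06 to 0.057 over all alternatives), and its log2 change was 5.84 without 40% root 3. HLS1 lost its call without 100% root 1, 100% root 3 or 40% root 2 (adjusted p 0.058 to 0.074, 2.2e-07 to 0.074 over all alternatives), and its log2 change was 4.94 without 40% root 3. The ligase had a log2 change of 3.11 without 100% root 1. The ubiquitin ligase kept its call with any 1 library left out and lost it in the fit of all 18 libraries (adjusted p = 0.072).

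Among the large falls, the respiratory burst oxidase RBOHB, which makes superoxide at the cell surface, fell in D1007_56555 and D1007_19201. The first had 0.317, 0 and 1.74 CPM in 100% roots, against 29, 14.1 and 2.70 CPM in 40% roots (-4.49 ± 1.04, adjusted p = 0.042). The second had 0.317, 0 and 1.49 CPM in 100% roots, against 18, 12.8 and 2.24 CPM in 40% roots (-4.21 ± 1.0, adjusted p = 0.0463). In both, 40% root 3 was lowest among the 40% libraries and 100% root 3 highest among the 100% libraries, and the calls rest on few counts at 100%, 33 and 29. Anamorsin D1007_49910, a protein of iron-sulfur cluster assembly, had 0.823, 0.411 and 6.95 CPM in 100% roots, against 13.8, 47 and 41.4 CPM in 40% roots (-3.69 ± 0.84, adjusted p = 0.04). A universal stress protein, D1007_62154, had 0.886, 0.548 and 1.12 CPM in 100% roots, against 18.5, 6.65 and 7.94 CPM in 40% roots (-3.70 ± 0.59, adjusted p = 0.013). The hypersensitive-induced response protein at an assembled locus (scaffold SDOW01000364.1, 541566 to 543991) had 1.27, 0.548 and 1.30 CPM in 100% roots, against 24, 11.5 and 4.39 CPM in 40% roots (-3.69 ± 0.62, adjusted p = 0.016). D1007_56555 lost its call without each 100% root library in turn, 40% root 1 or 40% root 2 (adjusted p 0.0548 to 0.13, 0.0089 to 0.16 over all alternatives), and its log2 change was -3.67 without 40% root 1 and -6.46 without 100% root 3. D1007_19201 lost its call without each 100% root library in turn, 40% root 1 or 40% root 2 (adjusted p 0.059 to 0.14, 0.00026 to 0.15 over all alternatives), and its log2 change was -5.99 without 100% root 3. Anamorsin lost its call without 100% root 1, 100% root 2, 40% root 2 or 40% root 3 (adjusted p 0.067 to 0.11, 0.0035 to 0.11 over all alternatives), and its log2 change was -5.75 without 100% root 3. D1007_62154 lost its call without 100% root 3 (adjusted p = 0.051, 3.2e-08 to 0.13 over all alternatives). The hypersensitive-induced locus lost its call without 100% root 1 or 100% root 3 (adjusted p 0.051 to 0.06, 7.8e-08 to 0.06 over all alternatives), and its log2 change was -2.96 without 40% root 1.

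The same step from 40% to 100% was set beside its counterpart in leaf. Over all 18 libraries, the change in root minus the change in leaf was tested in 24046 genes. It passed in 2758 (11.5%), more positive in root in 1037 (4.31%) and more negative in 1721 (7.16%). With library size alone as the scaling, 3300 genes passed, 64.7% of them more positive in root, against 37.6% in the scaling used here, and the median over all genes moved to 0.26. With RLE factors it was 31.4% and with DESeq2 35.6%. The direction of this split therefore flips with the scaling. Of the 129 genes named by rule or added after their values were seen, 30 passed, 21 more positive and 9 more negative in root. Scaling by library size alone reversed none of the 30, and 26 still passed.

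NPF6.3 D1007_25456 rose in root and had 76.6 ± 28.3 CPM in 100% leaves and 136 ± 50 CPM in 40% leaves, and its change differed between the tissues by 2.51 ± 0.52, adjusted p = 0.008. NAR2.1 D1007_31256 had 30.4 ± 11.6 CPM in 100% leaves and 43.5 ± 9.40 CPM in 40% leaves, a difference of 2.66 ± 0.52, adjusted p = 0.0057. Glutamate synthase D1007_59671 had 31.2 ± 8.22 CPM in 100% leaves and 55.1 ± 21.9 CPM in 40% leaves, a difference of 3.38 ± 0.81, adjusted p = 0.016. Glucose-6-phosphate dehydrogenase D1007_17542 had 23.5 ± 6.20 CPM in 100% leaves and 26 ± 3.07 CPM in 40% leaves, a difference of 2.1 ± 0.47, adjusted p = 0.011. Nitrite reductase D1007_08673, with 716 ± 386 CPM in 100% leaves and 98.5 ± 19.9 CPM in 40% leaves, rose in both tissues (3.11 ± 0.40, adjusted p = 0.0017 in leaf), and the difference did not pass (0.58, adjusted p = 0.65). For HSP70 and LHY the difference did not pass either. HSP70 D1007_49259 had 854 ± 223 CPM in 100% leaves and 69.3 ± 27.9 CPM in 40% leaves and a difference of -1.0 (adjusted p = 0.09). Of 96 heat shock genes, 16 were more negative and 3 more positive in root, against 7.16% and 4.31% of all genes. The list summed to 11567 to 14659.6 CPM in 100% leaves and 4937 to 5321 CPM in 40% leaves. In root it summed to 11897 to 12677 CPM at 100% and 7878 to 8446 CPM at 40%. How this split moves with the scaling was not tested. LHY D1007_00729 had 1925 ± 215 CPM in 100% leaves and 362 ± 84.9 CPM in 40% leaves and a difference of -0.80 (adjusted p = 0.19). ACC oxidase D1007_28056 went the opposite way in leaf, with 0, 0.564 and 1.30 CPM in 100% leaves and 23.8, 18.1 and 27.8 CPM in 40% leaves, a difference of 6.53 ± 1.04, adjusted p = 0.0021. The LOG gene D1007_11906 had 0.825, 0.902 and 0.508 CPM in 100% leaves and 7.70, 20.4 and 4.36 CPM in 40% leaves, a difference of 5.35 ± 0.99, adjusted p = 0.0043. HLS1 D1007_59348 had 24.4 ± 6.94 CPM in 100% leaves and 106 ± 27.3 CPM in 40% leaves, a difference of 5.61 ± 0.81, adjusted p = 0.0014. The 7 differences given here gene by gene that passed were kept with any 1 of the 12 libraries left out, with adjusted p of at most 0.0479 over all alternatives.

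**Figure D5:**
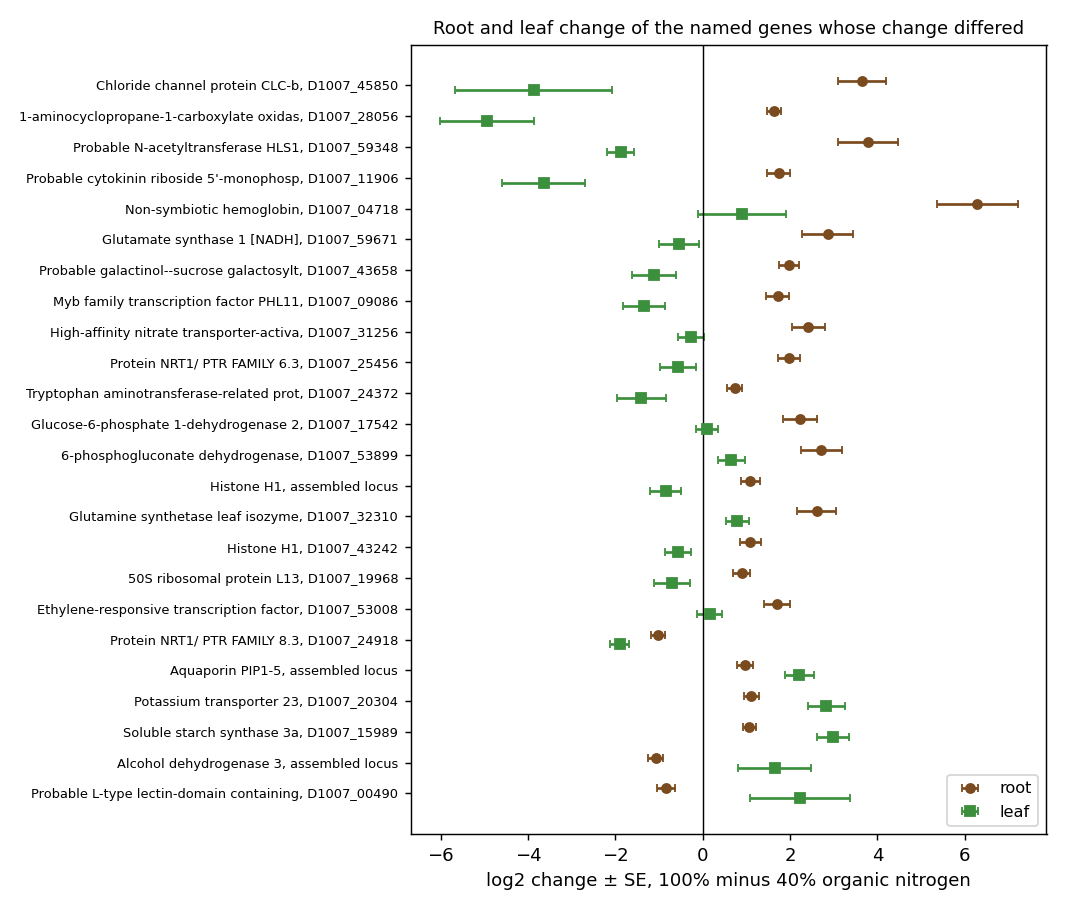
Log2 change ± SE between 100% and 40% organic nitrogen (horizontal axis) in root (circles) and leaf (squares) for the 24 named genes whose change differed between the tissues and that were tested in leaf. In ACC oxidase the change is 1.63 in root and -4.94 in leaf, and in HLS1 3.78 in root and -1.87 in leaf.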

How the data were processed

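Total RNA of highland barley roots and leaves was sequenced, and the authors deposited whole-number read counts per locus for 18 libraries, 3 per tissue and rate, in 1 table. It lists a length for each locus, which was not used, since levels are given as CPM. Per the submitters' processing notes, the tools included HISAT2 2.0.5 and featureCounts 1.5.0-p3, beside CASAVA 1.8, fastp and DESeq2 1.20.0. GRCm38 and mm10, both mouse builds, stand in these notes, while the loci of the table lie on barley scaffolds, so the positions given are those of these scaffolds in the table. Strand and multiple matches in counting are not stated in the sources used here. No sequences were used here.

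The counts of the 9 root libraries were tested with the quasi-likelihood fit of edgeR 4.0.16 (R 4.3.3), TMM factors, 1 mean per rate, filterByExpr (minimum count 10, minimum total 15) and Benjamini-Hochberg adjustment over all 21895 genes. The change in root minus that in leaf was tested in 1 fit of all 18 libraries. Only the 6 root libraries of 100% and 40% enter the means compared, and the 0% roots share the estimate of spread. The biological coefficient of variation was 27.7% in root and 38.7% over both tissues. The SE is the log2 change over the square root of F. The steps were tested on simulated counts.

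Genes were named by a rule. It took the 10 largest called rises and falls with an informative description, groups that do not overlap and a mean of 5 CPM or more where higher. It also took the 2 called members of smallest p per direction of each gene list, and the most abundant member of each of 6 nitrogen lists. The 17 genes added after their values were seen are marked so where they are the subject. Other members given in the text were outside the rule and were picked with their results known. They are given by their means, some with a log2 change and adjusted p, and do not always complete a list's count. How their calls fare with 1 library left out is not given here. The comparison and the 43 lists, built from words of the deposited descriptions, were chosen with earlier results of these data known, and words were tightened after their matches were seen. Alternatives were other scalings, filters, samples in the fit, DESeq2 1.42.0, a replicate term and leaving out each library.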

Additional observations from a re-analysis of the deposited data

Results flagged for a closer look

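For 30 named genes the change between 100% and 40% differed between root and leaf by the test of that difference (edgeR's quasi-likelihood test on 18 libraries). Values are root change minus leaf change on the log2 scale ± SE. An adjusted p below 0.05 with each of the 12 libraries of 100% and 40% left out in turn is called kept here.

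The kept differences of nitrogen and reductant genes were those of NPF6.3 D1007_25456 (2.51 ± 0.52, adjusted p = 0.008), NAR2.1 D1007_31256 (2.66 ± 0.52, adjusted p = 0.0057), glutamate synthase D1007_59671 (3.38 ± 0.81, adjusted p = 0.016), glucose-6-phosphate dehydrogenase D1007_17542 (2.1 ± 0.47, adjusted p = 0.011) and CLC-b D1007_45850 (7.5 ± 1.63, adjusted p = 0.0099). CLC-b had 0, 0 and 0.226 CPM in 100% leaves and 0.728, 1.95 and 1.55 CPM in 40% leaves. Further kept differences were those of HLS1 D1007_59348 (5.61 ± 0.81, adjusted p = 0.0014), ACC oxidase D1007_28056 (6.53 ± 1.04, adjusted p = 0.0021), the LOG gene D1007_11906 (5.35 ± 0.99, adjusted p = 0.0043), PHL11 D1007_09086 (3.02 ± 0.58, adjusted p = 0.0051), the galactosyltransferase D1007_43658 (3.04 ± 0.61, adjusted p = 0.0063) and the assembled histone H1 locus (1.91 ± 0.45, adjusted p = 0.015). Starch synthase 3a D1007_15989 (-1.94 ± 0.40, adjusted p = 0.0069) rose in root and had 242 ± 65.2 CPM in 100% leaves and 36.3 ± 6.50 CPM in 40% leaves.

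In 6 further genes, as in CLC-b, at least 1 leaf group was at or near 0, so that the fitted size of the difference is no bound. Kept among them were JMJ30 D1007_26028 (-9.36 ± 1.8, adjusted p = 0.0066), with 0, 0.113 and 0.113 CPM in 100% leaves and 0, 0 and 0 CPM in 40% leaves, the assembled cysteine synthase locus (8.62 ± 1.38, adjusted p = 0.0028), with 0, 0 and 0 CPM in 100% leaves and 0.364, 0.369 and 0.837 CPM in 40% leaves, and NAC90 D1007_09369 (-11.86 ± 2.37, adjusted p = 0.008), with 0.707, 11 and 0.0564 CPM in 100% leaves and 0, 0 and 0 CPM in 40% leaves. The others were lost without at least 1 library. Nitrate reductase D1007_08787 (-6.01 ± 1.69, adjusted p = 0.036) had 0.295, 2.71 and 0.847 CPM in 100% leaves and 0, 0 and 0 CPM in 40% leaves. Phenylalanine ammonia-lyase D1007_11287 (-7.30 ± 1.99, adjusted p = 0.037) had 0, 0.789 and 0 CPM in 100% leaves and 0, 0 and 0 CPM in 40% leaves. HSL1 D1007_60732 (5.58 ± 1.46, adjusted p = 0.024) had 0, 0.0564 and 0 CPM in 100% leaves and 0, 0.211 and 0.657 CPM in 40% leaves. For JMJ30 the leaf libraries held 4 counts in all at 100% and 0 at 40%, each library below the floor of 3 counts. Its leaf change was therefore not resolved, and neither the size nor the direction of its difference is secured.

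The remaining differences, too, were lost without at least 1 library. They were those of the hemoglobin D1007_04718 (5.33 ± 1.47, adjusted p = 0.03), NPF8.3 D1007_24918 (0.85 ± 0.27, adjusted p = 0.0486), the tryptophan aminotransferase-related D1007_24372 (2.11 ± 0.57, adjusted p = 0.027), potassium transporter 23 D1007_20304 (-1.75 ± 0.46, adjusted p = 0.025), the assembled PIP1-5 locus (-1.26 ± 0.39, adjusted p = 0.0484), ERF118 D1007_53008 (1.52 ± 0.42, adjusted p = 0.032), the lectin kinase D1007_00490 (-3.08 ± 0.90, adjusted p = 0.039), the assembled alcohol dehydrogenase 3 locus (-2.75 ± 0.85, adjusted p = 0.0476), histone H1 D1007_43242 (1.63 ± 0.41, adjusted p = 0.021), L13 D1007_19968 (1.56 ± 0.48, adjusted p = 0.0457), 6-phosphogluconate dehydrogenase D1007_53899 (2.02 ± 0.57, adjusted p = 0.032) and plastid glutamine synthetase D1007_32310 (1.8 ± 0.54, adjusted p = 0.042).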

How the results depend on the processing

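The 1005 calls in root (526 higher, 479 lower) became 2369 with DESeq2 (1168 and 1201), 237 with the 6 compared libraries alone (138 and 99), 183 with all 18 libraries (92 and 91) and 667 with a minimum log2 change of 1 (339 higher). With 1 library left out they were 209 to 872, 108 to 479 of them higher and 101 to 494 lower. RLE factors, library size alone, scaling without the 20 most abundant genes, no filter and a filter of 5 CPM gave 977 to 1085 calls. All 1005 genes were called by DESeq2. The replicate numbers do not pair the samples by the labels, and same-numbered 100% and 40% libraries deviated with correlations of 0.125, -0.165 and -0.0599, with 2 of 6 libraries closest to their own number. With the replicate block 430 genes were called (215 higher, 215 lower), 396 of them among the 1005. The 2758 differences between root and leaf became 4535 with DESeq2 and 1541 to 3495 with 1 library left out. Of 129 named genes, 44 called ones kept their call without each of the 6 libraries, and 19 of these 44 lost it under another alternative, 16 of them with all 18 libraries. The log2 sign turned with 1 library left out for NAR2.2 D1007_44398 (-0.13 to 0.62, below 0 without 100% root 1) and glutamine synthetase D1007_38808 (-0.2 to 0.2, above 0 without 40% root 2 and, at 0.01, without 100% root 1), neither of them called. The cause of these shifts was not tested. A count of 3 equals 0.186 to 0.231 CPM in these libraries, so lower levels are not resolved, and counting error alone underlies this limit.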

Other observations

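A pair of loci outside the tests' threshold was chosen after values were seen. The phosphate transporter PT1-11 D1007_32504 had 5.32, 9.94 and 0.248 CPM in 100% roots, against 2.95, 0 and 0 CPM in 40% roots (2.33 ± 1.30, adjusted p = 0.33). The ammonium transporter AMT3;1 D1007_48840 had 3.29, 6.03 and 0.186 CPM in 100% roots, against 0.983, 0 and 0 CPM in 40% roots (3.16 ± 1.30, adjusted p = 0.19). PT1-11 had a log2 change of 9.31 without 40% root 1 and 1.48 without 100% root 2. AMT3;1 had a log2 change of 8.60 without 40% root 1 and 2.33 without 100% root 2. Without 40% root 1 both loci were at 0 in the remaining 40% libraries, so those fitted values are no bound.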
